A study of Mus musculus with 16 samples.

Results

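The cells described here were CD8+ effector T cells sorted as PD-1+ TIM-3- after 5 days of culture (Teff2), set against the naive CD8+ T cells from which such cultures start (Tn). Membership was by label alone: the 3 Teff2 and 3 Tn RNA-seq libraries, 6 of the 12 RNA-seq libraries and of 16 samples in the series. The other 6 RNA-seq libraries were 3 of day 2 effectors (Teff1), used below for 1 comparison, and 3 of TIM-3+ day 5 cells (Tex), used only to estimate the spread. The 4 Hi-C samples were not analysed here. Teff2 cells were C57BL/6 mouse spleen cells, enriched for naive CD8+ T cells by negative selection, that had been stimulated with antibodies to CD3e and to CD28 (10 µg/ml each) and given IL-2 at 300 U/ml after the first night. Teff1 cells came from the same culture scheme and were sorted at day 2 through the same PD-1+ TIM-3- gate. Tn cells, never stimulated, came from a day 0 sort through a naive gate that took CD8+ CD44- cells. Each library was made from 0.2 M cells, no label gives the age of the mice, and the labels name no gene deletion. The labels do not state whether the libraries of a group were separate animals or cultures. The p-values therefore reflect the spread of these samples alone, and that spread may be technical. Culture, stimulation and time differ together between the groups and cannot be told apart.

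A naive T cell is a small resting cell that recirculates through lymphoid organs. Signals through the T cell receptor (TCR) and the co-stimulatory receptor CD28 make it grow, divide and acquire effector functions such as secretion of IFN-γ and killing by granzymes and perforin, and IL-2 sustains that expansion. PD-1 is a receptor induced by TCR signals that restrains them, and TIM-3 is a second inhibitory receptor, used here to gate the cells described apart from TIM-3+ cells of the same day.

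Levels are given in CPM, the count divided by the library total in M counts after that total was scaled by its TMM factor. Only the marker sums use plain totals. The plain totals were 19.32, 16.3 and 17.99 M counts in Teff2 and 14.74, 14.67 and 17.58 M counts in Tn. CPM are not divided by transcript length, so they compare one gene between libraries and not genes with one another. They are relative to the other RNA of a library, so rises and falls below are not changes in RNA per cell. A floor of 3 counts lay at 0.153 to 0.194 CPM in Teff2 and 0.161 to 0.204 CPM in Tn. Markers of other spleen cells were lower in Teff2 than in Tn for most types, as the plot of marker sums shows. The 7 B cell markers that the file holds summed to 129, 154 and 265 CPM in Teff2 and 1324, 625 and 2125 CPM in Tn, with Pax5 at 0 in all 3 Teff2 libraries. The 5 MHC class II markers summed to 127, 48.7 and 41.1 CPM in Teff2 and 1422, 119 and 2230.4 CPM in Tn. The 9 macrophage and monocyte markers summed to 8.59, 7.06 and 12 CPM in Teff2, where 5 of the 9 were at 0, and 322, 92.2 and 174 CPM in Tn. The 6 NK cell markers summed to 3.62, 3.74 and 6.84 CPM in Teff2 and 127, 4.57 and 256 CPM in Tn. Tn replicate 2 was the lowest Tn library for these 4 sums, so each list and family below is also given with that library as the only Tn library, a fit that assumes the lone library to vary like the others. The CD8+ CD44- sort of Tn would leave out most cells of these types. In bulk RNA, fewer cells of a type and less RNA per cell cannot be told apart.

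**Figure D1:**
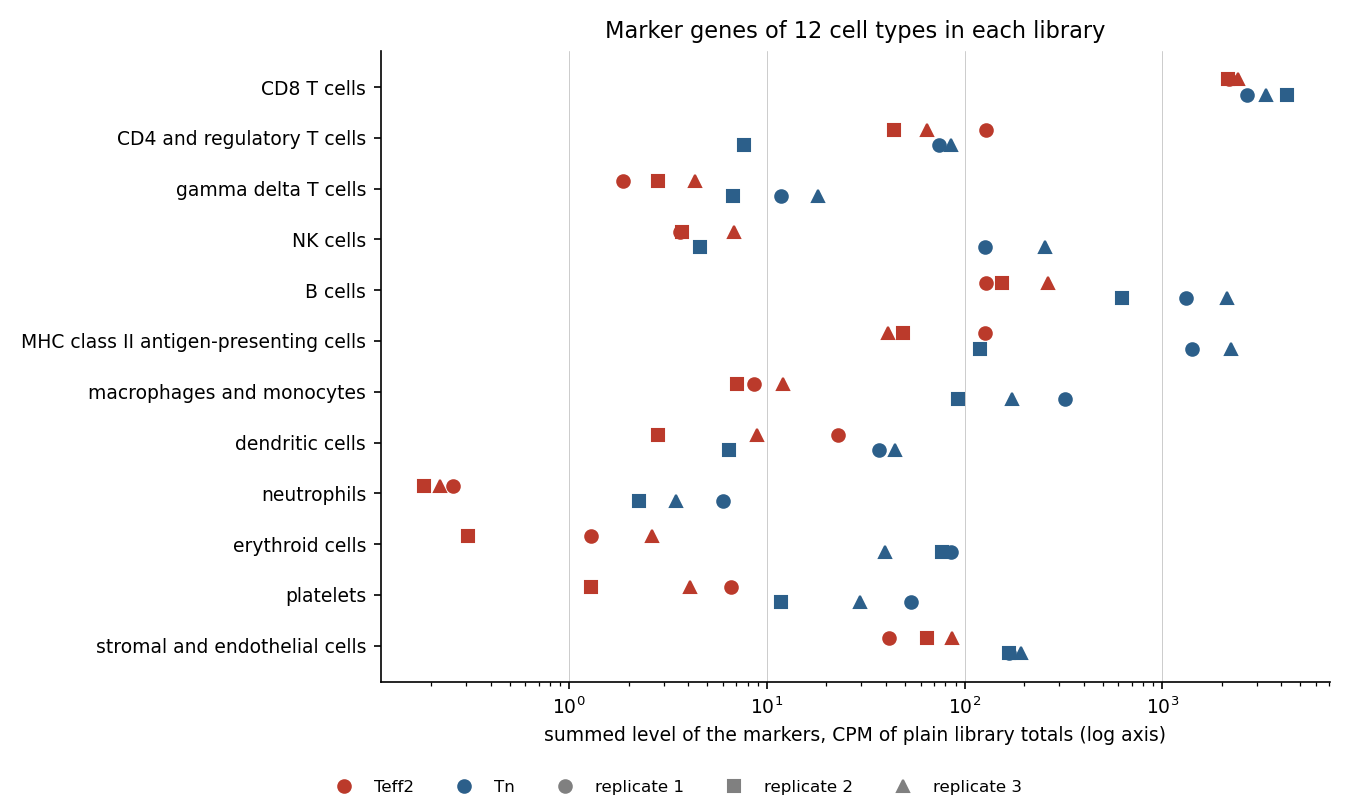
Summed level of each marker list (CPM on plain library totals, log scale) in every Teff2 and Tn library, with one point per library. All Teff2 libraries lie below all Tn libraries for the gamma delta T cell, B cell, macrophage and monocyte, neutrophil, erythroid, platelet and stromal and endothelial lists, while the CD8 T cell list lies between 2147 and 4257 CPM in all 6 libraries.

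The transcripts of the sorted proteins were read first as a check of the labels. Pdcd1, which encodes PD-1 (chromosome 1, 94038305 to 94052553), had 103, 179 and 220.3 CPM in Teff2 and 3.51, 3 and 6.93 CPM in Tn, and was called higher (log2 fold change 5.21, SE 0.39, adjusted p = 4.10e-06). Havcr2, which encodes TIM-3 (chromosome 11, 46454931 to 46481255), had 0.612, 0.258 and 0.43 CPM in Teff2 and 2.45, 0.409 and 2.2 CPM in Tn. It was at most 2.45 CPM in all 6 libraries, and its lower call (log2 fold change -1.93, SE 0.68, adjusted p = 0.034) was lost without Tn replicate 1 (adjusted p = 0.113), without Tn replicate 3 (0.103), without Teff2 replicate 2 (0.113) and without Teff2 replicate 3 (0.0862). Cd44, the adhesion receptor whose absence was part of the naive gate (chromosome 2, 102811141 to 102901669), had 257, 240.4 and 239 CPM in Teff2 and 36.3, 6.33 and 32.3 CPM in Tn and was higher (log2 fold change 3.3, SE 0.53, adjusted p = 4.32e-04). Cd8a (chromosome 6, 71373427 to 71379171) had 715, 870 and 859 CPM in Teff2 and 931, 1536 and 1129 CPM in Tn. This lower call (log2 fold change -0.56, SE 0.18, adjusted p = 0.024) was lost without Tn replicate 2 (adjusted p = 0.124) and without Teff2 replicate 1 (0.0769), 2 (0.0705) or 3 (0.0507). Pdcd1 and Cd44 followed the gates in every library, with no overlap between the groups.

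A large share of the transcriptome differed between day 5 effectors and naive cells, in both directions. Of 14332 genes tested with edgeR's quasi-likelihood test, 3672 were called higher (25.6%) and 3338 lower (23.3%) in Teff2 than in Tn at a Benjamini-Hochberg adjusted p under 0.05, and 2510 and 2247 of these were at least 2-fold changed. All 3 Teff2 libraries lay above all 3 Tn libraries for 4271 genes (29.8%) and below them for 4238 (29.6%). Against day 2 effectors far fewer genes differed: 80 were higher (0.558%) and 16 lower (0.112%) in Teff2 than in Teff1. The gene groups below are read against these shares, and each value named as a log2 fold change is Teff2 minus Tn from the same fit. With Tn replicate 2 as the only Tn library 1701 genes were higher and 1633 lower, together 3334 calls, of which 3216 were shared with the 7010 calls on all libraries. Upper-quartile scaling in place of TMM shifted all log2 fold changes by -0.113, which is small beside the changes named below except in the lists with medians near 0.

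**Figure D2:**
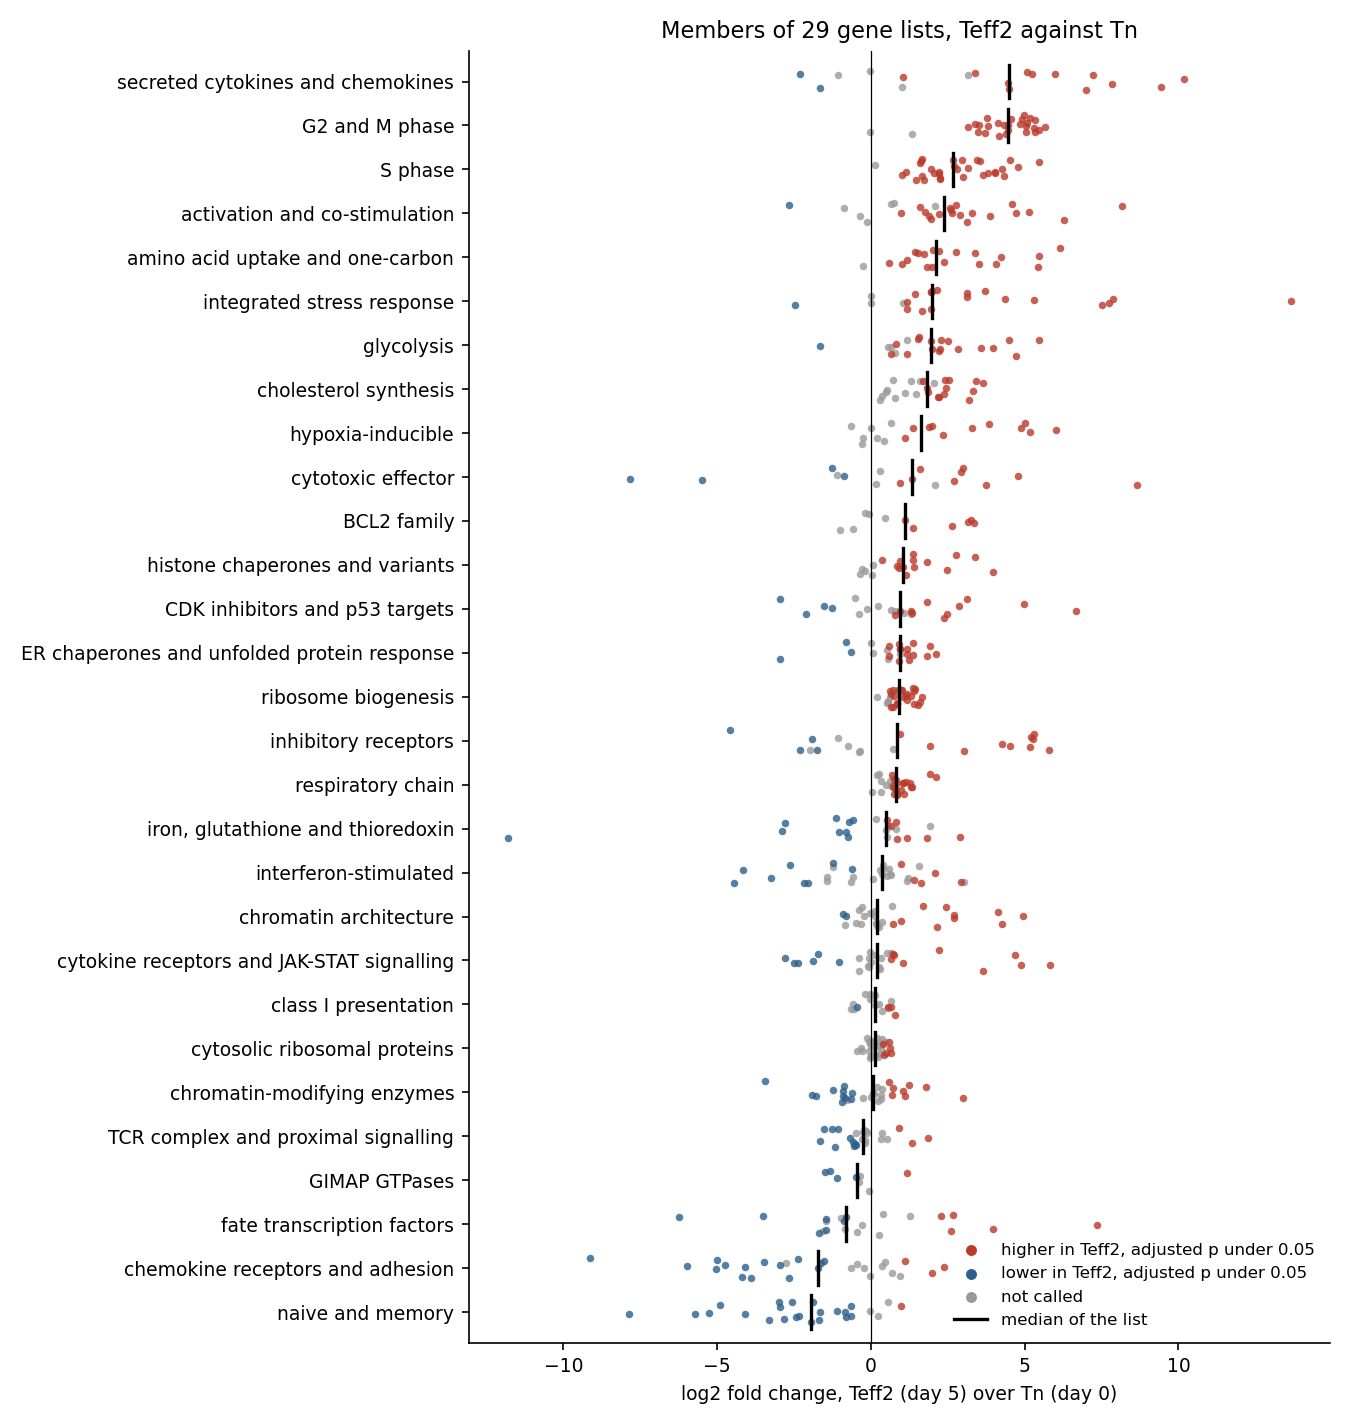
Log2 fold change (Teff2 minus Tn) of every tested member of the 29 gene lists, one point per gene, with the median of each list marked. Points are red where called higher, blue where called lower and grey where not called. The G2 and M phase list lies furthest above 0 together with the cytokine list, at medians of 4.45 and 4.48, and the naive and memory list furthest below, at -1.94; Cth and Slc40a1, at 13.65 and -11.8, have 0 counts in one group, so these fitted values are no bounds.

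The genes that mark resting, recirculating T cells were lower in Teff2. Of 25 tested naive and memory genes 21 fell and 1 rose, against 23.3% and 25.6% of all genes, and the median log2 fold change was -1.94. Klf2, a transcription factor that maintains quiescence and expression of trafficking receptors (chromosome 8, 72319062 to 72321654), had 2.55, 2.64 and 4.46 CPM in Teff2 and 866, 792 and 590.1 CPM in Tn (log2 fold change -7.86, SE 0.64, adjusted p = 6.20e-06). S1pr1, the sphingosine-1-phosphate receptor through which T cells leave lymphoid organs, had 8.27, 5.42 and 15.8 CPM in Teff2 and 574, 519 and 461 CPM in Tn (log2 fold change -5.72, SE 0.53, adjusted p = 1.22e-05). Il6ra, the ligand-binding chain of the IL-6 receptor, had 4.34, 6.9 and 5.75 CPM in Teff2 and 208, 254 and 190.4 CPM in Tn (log2 fold change -5.27, SE 0.22, adjusted p = 1.93e-07). For these 3 genes every Teff2 library stood more than 10 times below every Tn library. Klf3, a related transcription factor, had 15.5, 4.13 and 5 CPM in Teff2 and 208, 291 and 243 CPM in Tn (log2 fold change -4.91, SE 0.66, adjusted p = 1.36e-04, and -5.74 without Teff2 replicate 1). The partner chain of the IL-6 receptor, Il6st, fell by 3.32 on the log2 scale, the stem-like T cell transcription factors Tcf7 and Lef1 by 2.57 and 2.34, Foxo1 by 1.94, and the IL-7 receptor gene Il7r by 1.7. Not the whole group moved this way. Bcl2, which protects from apoptosis, rose, with 479.6, 389.9 and 313 CPM in Teff2 and 191, 239.9 and 172 CPM in Tn (log2 fold change 0.97, SE 0.27, adjusted p = 0.0114). Ccr7, the chemokine receptor for lymph node entry, had 713, 355 and 864 CPM in Teff2 and 507, 453 and 362 CPM in Tn and was not called (log2 fold change 0.55, SE 0.34, adjusted p = 0.208). It was called without Teff2 replicate 2 (log2 fold change 0.91, adjusted p = 0.0362). Bach2, a repressor of effector genes, had 199.8, 138 and 142 CPM in Teff2 and 184, 150.4 and 161 CPM in Tn (log2 fold change -0.04, SE 0.28, adjusted p = 0.907). With Tn replicate 2 standing for the naive group, 18 of the 21 falls were kept.

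Receptors that steer T cells through tissues followed a similar course: 15 of 27 tested chemokine receptor and adhesion genes fell and 3 rose (median log2 fold change -1.73). Ccr9, the receptor for the gut and thymus chemokine CCL25, had 0.306, 0 and 0.484 CPM in Teff2 and 123, 215 and 137 CPM in Tn (log2 fold change -9.13, SE 0.8, adjusted p = 8.84e-06, and -9.81 without Teff2 replicate 3). Itgae, the αE integrin chain CD103, had 12.6, 2.06 and 2.37 CPM in Teff2 and 159.6, 254 and 141 CPM in Tn (log2 fold change -5.02, SE 1.14, adjusted p = 0.00366, and -6.36 without Teff2 replicate 1). Cxcr4 fell by 4.2 on the log2 scale, Itga4 by 2.95, Gpr183 by 2.67, Cxcr3 by 1.73 and the integrin β7 chain Itgb7 by 1.63. Cx3cr1, with 0.102, 0 and 0.108 CPM in Teff2 and 6.63, 0.272 and 8.28 CPM in Tn (log2 fold change -5.98, SE 1.42, adjusted p = 0.00454), and Cxcr5, the follicle homing receptor, with 0.918, 0.516 and 1.88 CPM in Teff2 and 23.4, 9.33 and 57.5 CPM in Tn (log2 fold change -4.75, SE 0.67, adjusted p = 1.96e-04, and -5.35 without Teff2 replicate 3 and -3.87 without Tn replicate 3), also fell. In both genes Tn replicate 2 was the lowest Tn library, as it was for the NK and B cell marker sums, and the part of those cells was not tested. The rises were Itgav, the αV integrin chain, with 134, 150.2 and 175 CPM in Teff2 and 40.9, 36.2 and 38.9 CPM in Tn (log2 fold change 1.99, SE 0.23, adjusted p = 4.47e-05), Itgb1 (log2 fold change 1.12) and the chemokine receptor Ccr4, with 7.3, 7.16 and 9.68 CPM in Teff2 and 1.59, 0.953 and 2.04 CPM in Tn (log2 fold change 2.38, SE 0.3, adjusted p = 8.36e-05). Itgal, the LFA-1 α chain, and Selplg, the selectin ligand PSGL-1, were not called, at 1003, 715 and 728 CPM and 330.2, 382 and 408 CPM in Teff2 and 652, 619.7 and 641 CPM and 370.4, 598 and 562 CPM in Tn. Selplg was called without Tn replicate 1 (log2 fold change -0.64, adjusted p = 0.04). In the fit with only Tn replicate 2, 3 rises and 10 of the 15 falls were kept. S1pr5 was below the filter on low counts.

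The TCR and its proximal signalling genes changed by smaller steps. Of 24 tested genes of the TCR complex and its signalling chain 10 fell and 3 rose (median log2 fold change -0.27). Cd247, the ζ chain that carries most of the complex's signalling motifs, had 74.6, 64.4 and 66.4 CPM in Teff2 and 177, 235 and 183 CPM in Tn (log2 fold change -1.53, SE 0.19, adjusted p = 7.34e-05). Prkcq, the kinase PKC-θ, had 113, 137 and 132 CPM in Teff2 and 395, 444 and 353 CPM in Tn (log2 fold change -1.64, SE 0.19, adjusted p = 5.58e-05). Plcg1, the phospholipase that triggers calcium release, had 150.1, 118 and 147 CPM in Teff2 and 323, 311 and 294 CPM in Tn (log2 fold change -1.16, SE 0.15, adjusted p = 1.35e-04). Cd8b1, the second chain of the CD8 co-receptor, had 392, 299 and 345 CPM in Teff2 and 584, 1124 and 769 CPM in Tn (log2 fold change -1.26, SE 0.22, adjusted p = 7.59e-04). The 3 rises included a brake and an adaptor. Cblb, a ubiquitin ligase that restrains TCR signalling, had 621, 457 and 502 CPM in Teff2 and 146, 153 and 137 CPM in Tn (log2 fold change 1.86, SE 0.21, adjusted p = 3.85e-05). Lcp2, the adaptor SLP-76, had 473, 681 and 487 CPM in Teff2 and 214, 226 and 202 CPM in Tn (log2 fold change 1.35, SE 0.19, adjusted p = 1.67e-04). Cd5, a receptor that dampens TCR signals, rose by 0.93. Lat was not called (log2 fold change -0.24). The count of falls was 6 without Tn replicate 2, and the count of rises was 5 without Teff2 replicate 3; 2 rises and 7 falls were kept against Tn replicate 2 alone.

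Co-stimulatory receptors and transcription factors of the activated state were high at day 5. Of 26 tested activation genes 19 rose and 1 fell, with a median log2 fold change of 2.38. Il2ra, the high-affinity IL-2 receptor chain CD25 (chromosome 2, 11642792 to 11693194), had 794, 1221 and 999.8 CPM in Teff2 and 5.17, 0.953 and 4.3 CPM in Tn (log2 fold change 8.17, SE 0.52, adjusted p = 1.34e-06). Tnfrsf9, the co-stimulatory receptor 4-1BB, had 572, 1251 and 1096 CPM in Teff2 and 13.3, 11.8 and 12.1 CPM in Tn (log2 fold change 6.29, SE 0.33, adjusted p = 5.23e-07). Tnfrsf4, the receptor OX40, had 127, 349.7 and 272 CPM in Teff2 and 12.1, 6.61 and 9.46 CPM in Tn (log2 fold change 4.73, SE 0.51, adjusted p = 3.27e-05). All 3 were raised in every Teff2 library, and Tnfrsf9 and Tnfrsf4 were lowest in Teff2 replicate 1. Batf3, an AP-1 family transcription factor, had 45.9, 46.4 and 47.7 CPM in Teff2 and 2.45, 0.409 and 1.07 CPM in Tn (log2 fold change 5.15, SE 0.52, adjusted p = 2.00e-05, and 5.92 without Tn replicate 1). Among transcription factors read out of TCR signalling, Irf4 rose by 3.87 on the log2 scale, Nr4a3 by 4.59, Nr4a2 by 2.65, Nr4a1 by 1.88, Egr2 by 2.57 and Myc by 1.6. Cd69, an early activation marker, was not called: 250, 148 and 179 CPM in Teff2 and 399, 141 and 87.9 CPM in Tn (log2 fold change -0.12, SE 0.43, adjusted p = 0.832, and 0.75 without Tn replicate 1), with the direction turned and a call (adjusted p = 0.0492) when Tn replicate 1, its highest Tn library, was left out. Fosl2 stood likewise at 89.2, 192 and 143 CPM in Teff2 and 211, 27.1 and 32.6 CPM in Tn, where Tn replicate 1 was apart, and was not called (log2 fold change 0.65, SE 0.74, adjusted p = 0.487, and 2.25 without Tn replicate 1). It was called without Tn replicate 1 (log2 fold change 2.25, adjusted p = 0.0146). Cd40lg, mainly a CD4 T cell gene, was low in both groups, at 0.153, 1.23 and 0.538 CPM in Teff2 and 7.23, 0.477 and 4.25 CPM in Tn, and its lower call (log2 fold change -2.66, SE 0.96, adjusted p = 0.0368, and -3.43 without Teff2 replicate 2 and -1.91 without Tn replicate 1) was lost without Tn replicate 1 (adjusted p = 0.15) or 3 (0.0752) and without Teff2 replicate 1 (0.0948) or 3 (0.105). All 19 rises were kept against Tn replicate 2 alone.

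**Figure D3:**
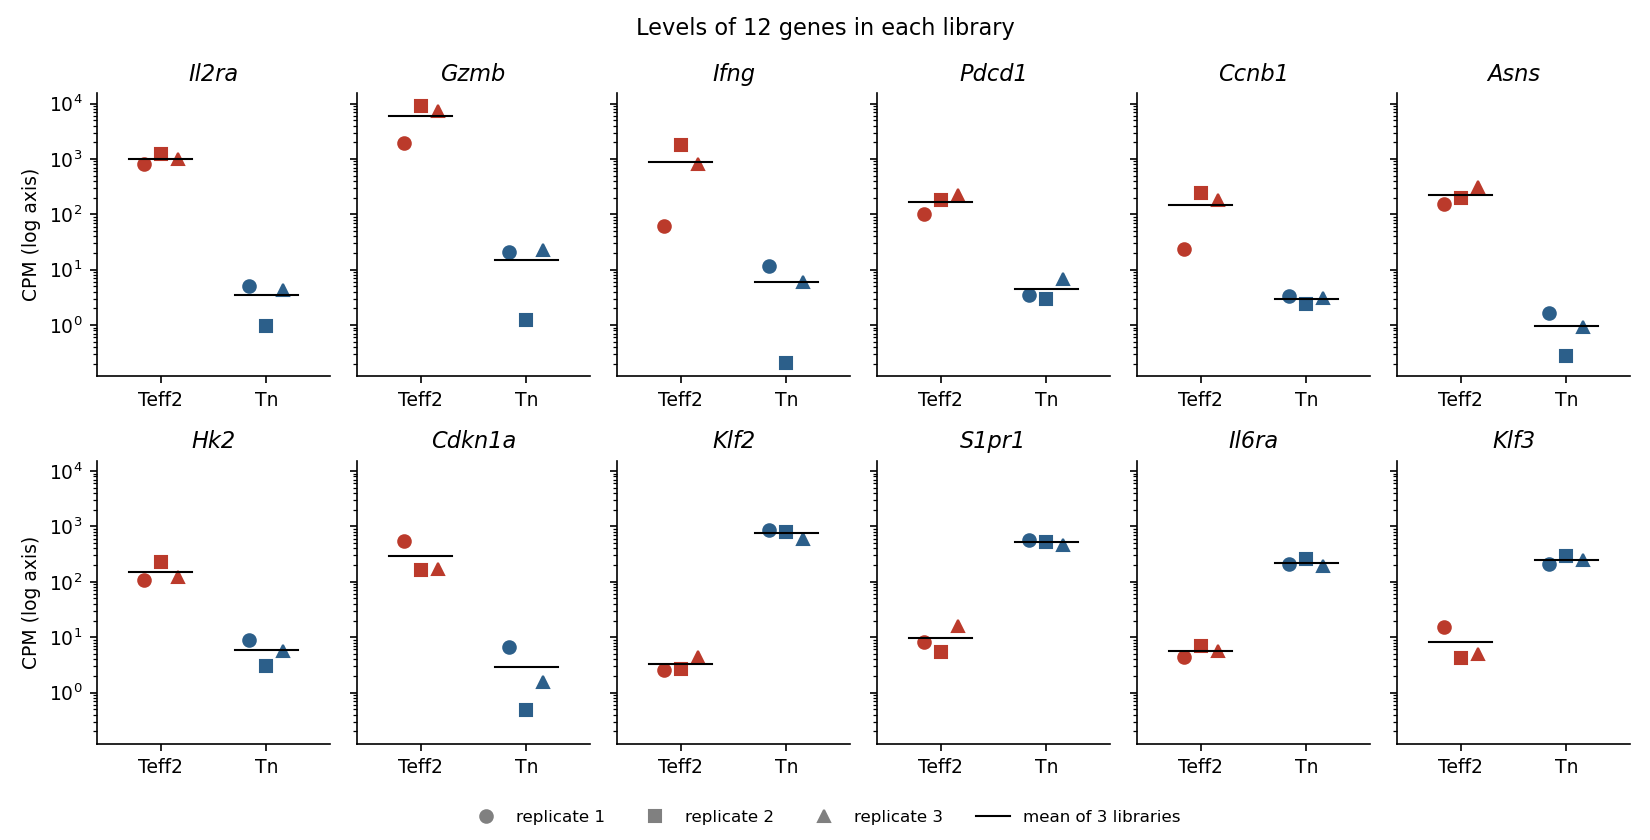
Level of selected named genes (CPM, log scale) in each Teff2 and Tn library, one point per library. Groups do not overlap for genes such as Klf2 and Il2ra, and Gzmb spans 1907 to 8905 CPM in Teff2 and 1.23 to 22.9 CPM in Tn.

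Among cytotoxic effector genes Gzmb had the largest fold change. Of 17 tested members 9 rose and 4 fell (median log2 fold change 1.35). Gzmb, granzyme B (chromosome 14, 56258836 to 56262334), had 1907, 8905 and 7202 CPM in Teff2 and 20.6, 1.23 and 22.9 CPM in Tn (log2 fold change 8.65, SE 1.1, adjusted p = 9.94e-05). Gzmc, a further granzyme, had 14.6, 1.42 and 8.44 CPM in Teff2 and 0.331, 0.341 and 0.215 CPM in Tn (log2 fold change 4.78, SE 1.09, adjusted p = 0.00363, and 4.08 without Teff2 replicate 1). Its close copies Gzmd, Gzme, Gzmf and Gzmg did not pass the filter on low counts, nor did Gzmk, and reads shared among such copies make the Gzmc count uncertain. Serpinb9, an inhibitor of granzyme B, had 126, 172 and 283 CPM in Teff2 and 28.2, 18.7 and 25.7 CPM in Tn (log2 fold change 3, SE 0.33, adjusted p = 3.79e-05). Serpinb6b, of the same inhibitor family, had 78.8, 161 and 502 CPM in Teff2 and 23, 14.2 and 17.5 CPM in Tn (log2 fold change 3.76, SE 0.7, adjusted p = 0.0011, and 2.73 without Teff2 replicate 3). Further rises were Fasl (log2 fold change 2.94), which triggers death receptors on target cells, the activating receptor Klrk1 (2.69), Cst7 (1.6) and Nkg7 (1.35). Prf1, the pore-forming perforin, spread over 35.7, 575 and 322 CPM in Teff2, against 54, 73.1 and 94.8 CPM in Tn, and was not called (log2 fold change 2.07, SE 0.83, adjusted p = 0.0564, and 1.35 without Teff2 replicate 2). It was called without Teff2 replicate 1 (log2 fold change 2.61, adjusted p = 0.00555). Teff2 replicate 1 lay below all Tn libraries for Prf1, and the other Teff2 libraries above them. Gzma had 0.561, 0 and 0.269 CPM in Teff2 and 71.9, 1.7 and 128 CPM in Tn (log2 fold change -7.82, SE 1.66, adjusted p = 0.00243, and -8.78 without Teff2 replicate 1 and -6.95 without Tn replicate 3). Klrg1, a marker of terminal effectors and NK cells, had 0.102, 0 and 0.108 CPM in Teff2 and 3.84, 0.136 and 6.83 CPM in Tn (log2 fold change -5.5, SE 1.51, adjusted p = 0.0104, and -4.64 without Tn replicate 3). Both were lowest among Tn libraries in Tn replicate 2, as the NK cell marker sum was. Gzma is itself the highest gene of that sum in Tn, so its course is part of it. The part of NK cells, which a CD8+ CD44- gate would mostly leave out, was not tested. Against Tn replicate 2 alone, 5 of 9 rises and 1 of 4 falls were kept.

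Cytokine and chemokine genes were among the most strongly raised. Of 18 tested genes 12 rose and 2 fell, with a median log2 fold change of 4.48 (3.92 with Il3, which had 0 counts in Tn, set at its bound). Ifng, the interferon of effector CD8+ T cells (chromosome 10, 118441046 to 118445894), had 61.1, 1754 and 819.6 CPM in Teff2 and 11.7, 0.204 and 5.91 CPM in Tn (log2 fold change 7.21, SE 1.38, adjusted p = 0.00131, and 6.3 without Teff2 replicate 2 and 8.13 without Tn replicate 1). Spp1, osteopontin, had 63.6, 354 and 259 CPM in Teff2 and 0.398, 0 and 0.161 CPM in Tn (log2 fold change 10.19, SE 0.98, adjusted p = 1.49e-05, and 11.2 without Tn replicate 1). Lif, an IL-6 family cytokine, had 112, 419 and 135 CPM in Teff2 and 0.464, 0.136 and 0.322 CPM in Tn (log2 fold change 9.45, SE 0.84, adjusted p = 9.95e-06, and 8.67 without Teff2 replicate 2). In all 3 genes Teff2 replicate 2 was the highest library and replicate 1 the lowest, and the groups did not overlap. Csf2, the growth factor GM-CSF, had 7.04, 8.71 and 2.63 CPM in Teff2 and 2 counts in all of Tn, a ratio of 145 (95% counting interval 39.9 to 1204). Il3 had 0.204, 1.55 and 2.96 CPM in Teff2 and no count in Tn, so with 3 counts per Tn library as the floor it was at least 8.35-fold higher. The chemokine genes Xcl1, Ccl3 and Ccl4 rose by 5.98, 5.08 and 4.49 on the log2 scale, Tnfsf11 (RANKL) by 5.23, Lta by 4.46 and Tnf by 3.38. Il4, Il5, Il10, Il13, Il21 and Ccl1 did not pass the filter on low counts. Il16 fell, with 48.2, 35.1 and 47.3 CPM in Teff2 and 90.1, 164 and 159 CPM in Tn (log2 fold change -1.66, SE 0.23, adjusted p = 1.55e-04). Ccl5 had 23.7, 6 and 6.88 CPM in Teff2 and 71.7, 8.72 and 99.3 CPM in Tn, and its lower call (log2 fold change -2.29, SE 0.8, adjusted p = 0.033, and -3.2 without Teff2 replicate 1) was lost without Tn replicate 1 (adjusted p = 0.0772) or 3 (0.127), without Teff2 replicate 2 (0.114) or 3 (0.109), and turned against Tn replicate 2 alone (log2 fold change 0.48, adjusted p = 0.739). Ltb, lymphotoxin β, was not called at 581, 265 and 157 CPM in Teff2 and 509, 796 and 781 CPM in Tn (log2 fold change -1.06, SE 0.42, adjusted p = 0.0561, and -1.71 without Teff2 replicate 1). It was called without Teff2 replicate 1 (log2 fold change -1.71, adjusted p = 0.00267). Ccl9 was not called either (log2 fold change 3.17, SE 1.73, adjusted p = 0.15, and -0.49 without Teff2 replicate 1 and 3.76 without Teff2 replicate 2 and 3.85 without Tn replicate 3), which had 49.1, 1.42 and 1.29 CPM in Teff2 and 2.12, 0.272 and 3.28 CPM in Tn. With Tn replicate 2 standing for the naive group, 10 rises and 1 fall were kept.

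On the receiving side of cytokine signalling, 9 of 28 tested receptor and JAK-STAT genes rose and 6 fell, shares near the 25.6% and 23.3% of all genes, and the median log2 fold change was 0.2. Il12rb2, the signalling chain of the IL-12 receptor, had 315, 389.5 and 559 CPM in Teff2 and 8.09, 4.29 and 9.51 CPM in Tn (log2 fold change 5.84, SE 0.44, adjusted p = 3.87e-06). Its partner Il12rb1 had 254, 187 and 109 CPM in Teff2 and 11.7, 13.4 and 18.5 CPM in Tn (log2 fold change 3.65, SE 0.41, adjusted p = 3.88e-05). Cish and Socs2, feedback inhibitors induced by STAT5, had 178, 195 and 89.7 CPM and 28.3, 49.1 and 42.7 CPM in Teff2 and 4.31, 5.04 and 6.4 CPM and 2.59, 0.409 and 1.61 CPM in Tn. Their log2 fold changes were 4.87 (SE 0.38, adjusted p = 4.90e-06) and 4.69 (SE 0.59, adjusted p = 8.75e-05). The IL-12 receptor chains and these inhibitors were raised in every Teff2 library. Socs3, which inhibits signalling by the IL-6 receptor family, had 20.5, 21.6 and 22.5 CPM in Teff2 and 143, 164 and 141 CPM in Tn (log2 fold change -2.8, SE 0.31, adjusted p = 4.25e-05). Ifngr2, a chain of the IFN-γ receptor, had 15.6, 5.35 and 8.33 CPM in Teff2 and 58.7, 51.3 and 55.2 CPM in Tn (log2 fold change -2.49, SE 0.56, adjusted p = 0.00335). The TGF-β receptor chains Tgfbr2 and Tgfbr1 fell by 2.36 and 1.04 and Jak1 by 1.89, while Il2rb rose by 0.74 and Stat3 by 1.03. Jak3 and Il21r were not called (log2 fold changes 0.28 and 0.32). In the fit with only Tn replicate 2, 6 rises and 5 falls were kept.

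Among the inhibitory receptor genes, the list that holds the gating receptors, 10 of 20 tested members rose and 4 fell (median log2 fold change 0.84). The gate itself fixes the protein of PD-1 and TIM-3 in Teff2, so their transcripts are no independent finding. Outside the gate, Lag3, an inhibitory receptor for MHC class II, had 143, 187 and 245 CPM in Teff2 and 2.98, 2.04 and 5.16 CPM in Tn (log2 fold change 5.8, SE 0.44, adjusted p = 4.13e-06). Klrc1, the inhibitory chain NKG2A, had 131, 225 and 404 CPM in Teff2 and 8.02, 0.409 and 10.6 CPM in Tn (log2 fold change 5.31, SE 0.8, adjusted p = 2.84e-04, and 5.91 without Tn replicate 3). Pdcd1lg2, the PD-1 ligand PD-L2, had 50.2, 46.6 and 41.7 CPM in Teff2 and 1.33, 0.681 and 1.56 CPM in Tn (log2 fold change 5.26, SE 0.41, adjusted p = 5.12e-06). Each of these was higher in every Teff2 library than in any Tn library. Tigit rose by 5.16 on the log2 scale, Cd200 by 4.27, Ctla4 by 3.02 and Cd274, the ligand PD-L1, by 1.93. Cd244, with 0.459, 0.258 and 0.376 CPM in Teff2 and 9.28, 1.91 and 15.8 CPM in Tn (log2 fold change -4.59, SE 0.88, adjusted p = 0.00129, and -3.9 without Tn replicate 3), and Lair1, with 1.12, 2.71 and 1.83 CPM in Teff2 and 10.3, 7.63 and 9.84 CPM in Tn (log2 fold change -2.3, SE 0.42, adjusted p = 9.79e-04), fell. Cd244 is also an NK cell gene and was lowest among Tn libraries in Tn replicate 2, as their markers were; their part was not tested. Btla and the ectonucleotidase gene Nt5e were not called (log2 fold changes -0.38 and -0.34), and Btla was called without Tn replicate 2 (log2 fold change -0.63, adjusted p = 0.0122). Against Tn replicate 2 alone, 8 rises and 2 falls were kept.

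Of 21 tested transcription factors of effector, memory and exhausted fates 5 rose and 7 fell (median log2 fold change -0.81), against 25.6% and 23.3% of all genes. Zbtb32, a zinc finger repressor of lymphocytes (chromosome 7, 30589680 to 30602819), had 57.1, 367 and 296 CPM in Teff2 and 1.99, 0.681 and 1.67 CPM in Tn (log2 fold change 7.36, SE 0.8, adjusted p = 3.26e-05). Bhlhe40, a regulator of effector metabolism, had 428, 364 and 446 CPM in Teff2 and 56.5, 2.32 and 20.8 CPM in Tn (log2 fold change 3.96, SE 0.84, adjusted p = 0.00241, and 5.15 without Tn replicate 1). Tbx21, the effector factor T-bet, rose by 2.59, Hif1a by 2.68 and Runx2 by 2.27. These 5 were all the rises of the list. Runx1 had 2.96, 6.97 and 5.16 CPM in Teff2 and 61.3, 49.8 and 58.6 CPM in Tn (log2 fold change -3.5, SE 0.34, adjusted p = 1.57e-05). Id2, an inhibitor of E-protein transcription factors, had 38.6, 36.6 and 23.5 CPM in Teff2 and 109, 119 and 92.1 CPM in Tn (log2 fold change -1.7, SE 0.21, adjusted p = 8.84e-05). Maf had 0.306, 0.0645 and 0 CPM in Teff2 and 18.1, 3.68 and 8.76 CPM in Tn (log2 fold change -6.24, SE 1.68, adjusted p = 0.00929, and -8.1 without Teff2 replicate 1 and -5.54 without Tn replicate 1). Gata3 had 12.1, 6 and 9.78 CPM in Teff2 and 30.7, 23 and 23.4 CPM in Tn (log2 fold change -1.47, SE 0.42, adjusted p = 0.0128), a call lost without Teff2 replicate 2 (adjusted p = 0.0584). Tox, a factor of exhausted T cells, fell by 0.87, and Tox2 did not pass the filter. Runx3 and Nfatc1 were not called (log2 fold changes -0.28 and 0.41), and Nfatc1 was called without Teff2 replicate 3 (log2 fold change 0.63, adjusted p = 0.0363). With Tn replicate 2 standing for the naive group, 5 rises and 4 falls were kept.

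Division genes rose almost throughout. In the S phase list 31 of 32 tested genes rose, with a median log2 fold change of 2.68, and in the G2 and M phase list 26 of 28 rose, with a median of 4.45. The median member of the S phase list stood at 49.3, 103 and 115 CPM in Teff2 and 16.3, 12.2 and 14.8 CPM in Tn, and that of the G2 and M phase list at 25.5, 147 and 120.2 CPM in Teff2 and 6.1, 3.13 and 5.35 CPM in Tn. Teff2 replicate 1 therefore carried the lowest division signal of its group, still above every Tn library, and without it 31 and 26 rises were kept. Mcm10 and Cdc45, which assemble and drive the replicative helicase, had 33.7, 133 and 115 CPM and 45.2, 106 and 115 CPM in Teff2 and 2.85, 0.953 and 2.53 CPM and 5.5, 2.79 and 4.84 CPM in Tn, log2 fold changes of 5.46 (SE 0.61, adjusted p = 3.98e-05) and 4.33 (SE 0.43, adjusted p = 1.75e-05). Rrm2, a ribonucleotide reductase subunit that supplies deoxynucleotides, had 94.8, 386 and 314 CPM in Teff2 and 15.2, 7.63 and 12 CPM in Tn (log2 fold change 4.51, SE 0.54, adjusted p = 6.05e-05). Dtl, which targets the licensing factor Cdt1 for degradation in S phase, had 60.6, 92.1 and 130 CPM in Teff2 and 5.24, 1.77 and 3.33 CPM in Tn (log2 fold change 4.77, SE 0.44, adjusted p = 1.15e-05). Cdt1 itself was the S phase member not called, with 46.4, 120 and 92.4 CPM in Teff2 and 81.9, 79.4 and 72.6 CPM in Tn (log2 fold change 0.15, SE 0.37, adjusted p = 0.767). Ccnb1, cyclin B1, had 23.4, 246 and 181 CPM in Teff2 and 3.38, 2.38 and 3.12 CPM in Tn (log2 fold change 5.66, SE 0.92, adjusted p = 4.56e-04). Cdk1, its kinase partner and the driver of mitosis, had 27.2, 209.7 and 130.3 CPM in Teff2 and 3.91, 2.32 and 2.79 CPM in Tn (log2 fold change 5.34, SE 0.76, adjusted p = 2.01e-04). Aurkb, a kinase of chromosome segregation, had 35, 206 and 140.3 CPM in Teff2 and 3.51, 1.29 and 4.57 CPM in Tn (log2 fold change 5.33, SE 0.74, adjusted p = 1.70e-04). Cdc25c, a phosphatase that activates CDK1, had 3.42, 25.5 and 25.5 CPM in Teff2 and 0.398, 0 and 0.752 CPM in Tn (log2 fold change 5.47, SE 1.04, adjusted p = 0.00128, and 6.45 without Tn replicate 3). Kif23 and Cdc25b were the G2 and M phase members not called, and in both Teff2 replicate 1 lay below all Tn libraries and replicates 2 and 3 above them: Kif23 had 17.5, 103 and 95.9 CPM in Teff2 and 25.3, 31.7 and 27.6 CPM in Tn, and Cdc25b had 17.5, 99.6 and 86.5 CPM in Teff2 and 57.7, 66.7 and 81.7 CPM in Tn. Kif23 was called without Teff2 replicate 1 (log2 fold change 1.83, adjusted p = 0.00395). In the fit with only Tn replicate 2, 29 S phase and 25 G2 and M phase rises were kept.

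Many G2 and M phase promoters carry a cell cycle homology region (CHR), the element through which the DREAM and MuvB complexes repress them in resting cells and activate them in dividing ones, often next to CCAAT boxes bound by NF-Y. The promoters of the list's 3 largest rises that hold the CHR letters are shown because they belong to the genes that rose most in it. Each window runs from 250 bases before to 50 after the RefSeq start (GRCm38.p6), 5′ to 3′ on the gene's strand, and capitals mark TTTGAA or its reverse complement. Cdk1 lies on the minus strand at chr10:69352863-69353162, and Ube2c, the ubiquitin-conjugating enzyme of the anaphase-promoting complex, and Kif11, the motor that separates spindle poles, on the plus strand at chr2:164769679-164769978 and chr19:37376132-37376431.
Cdk1: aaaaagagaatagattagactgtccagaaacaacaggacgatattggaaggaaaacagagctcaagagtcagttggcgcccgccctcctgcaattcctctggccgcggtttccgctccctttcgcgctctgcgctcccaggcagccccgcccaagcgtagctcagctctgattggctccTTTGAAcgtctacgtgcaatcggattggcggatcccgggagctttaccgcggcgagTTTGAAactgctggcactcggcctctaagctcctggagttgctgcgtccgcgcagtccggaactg
Ube2c: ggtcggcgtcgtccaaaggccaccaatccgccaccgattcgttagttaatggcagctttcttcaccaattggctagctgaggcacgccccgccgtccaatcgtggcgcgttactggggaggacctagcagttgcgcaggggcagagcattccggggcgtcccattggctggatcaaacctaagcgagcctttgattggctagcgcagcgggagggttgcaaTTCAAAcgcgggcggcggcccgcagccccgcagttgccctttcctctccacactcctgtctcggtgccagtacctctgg
Kif11: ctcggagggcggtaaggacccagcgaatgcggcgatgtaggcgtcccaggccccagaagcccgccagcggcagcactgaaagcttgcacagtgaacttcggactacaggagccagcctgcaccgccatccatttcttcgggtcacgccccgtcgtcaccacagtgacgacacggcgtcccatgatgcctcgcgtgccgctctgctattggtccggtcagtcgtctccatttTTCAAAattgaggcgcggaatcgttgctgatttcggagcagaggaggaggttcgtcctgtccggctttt
The Cdk1 window holds the letters at 71 and 15 bases before the start, the Ube2c window at 29 and the Kif11 window at 19, both of these as the reverse complement. Of the 28 list genes 22 had a window, and TTTGAA on either strand was in 15 of these (68.2%). By window it was in 16 of 23, against 17.9% of all 32851 windows. Ccnb1, the largest rise of the list, had a window without these letters, and Kif23, which was not called, held them. The letters CCAAT, searched on both strands, were in 20 of the 22 genes (90.9%). By window they were in 21 of 23, against 37.4% of all windows. Of the list's 23 windows, some genes having more than 1, 16 held both motifs, with no overlap between them. Ube2c had 25.5, 269 and 194 CPM in Teff2 and 5.9, 2.32 and 4.03 CPM in Tn, and Kif11 had 68.2, 347 and 344 CPM in Teff2 and 9.21, 4.15 and 9.78 CPM in Tn; their log2 fold changes were 5.31 (SE 0.9, adjusted p = 6.04e-04) and 5.03 (SE 0.67, adjusted p = 1.35e-04). A match of letters is a description and no evidence of binding in these cells.

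Inhibitors of the cell cycle did not simply fall while division genes rose. Of 23 tested CDK inhibitors and p53 targets 11 rose and 4 fell (median log2 fold change 0.95). Cdkn1a, the CDK inhibitor p21 (chromosome 17, 29090979 to 29100722), had 553, 162 and 169 CPM in Teff2 and 6.7, 0.477 and 1.56 CPM in Tn (log2 fold change 6.67, SE 1.1, adjusted p = 5.20e-04, and 5.85 without Teff2 replicate 1 and 8.12 without Tn replicate 1). Phlda3, a p53-induced inhibitor of AKT, had 116, 12.8 and 14.1 CPM in Teff2 and 1.99, 1.16 and 1.34 CPM in Tn (log2 fold change 4.99, SE 1.16, adjusted p = 0.00414, and 3.18 without Teff2 replicate 1). Both were highest in Teff2 replicate 1, the Teff2 library with the lowest G2 and M phase genes. Sesn2, a stress-induced inhibitor of mTORC1, had 97, 64 and 77.1 CPM in Teff2 and 12.4, 7.63 and 7.09 CPM in Tn (log2 fold change 3.14, SE 0.44, adjusted p = 1.94e-04). Plk2 had 84.5, 105 and 77.1 CPM in Teff2 and 29.4, 3.27 and 4.08 CPM in Tn (log2 fold change 2.86, SE 0.65, adjusted p = 0.00352, and 4.59 without Tn replicate 1). Cdkn2c (p18) rose by 2.38, while Cdkn1b (p27), the inhibitor of resting cells, fell by 1.51. Gadd45a had 1.38, 2.06 and 1.34 CPM in Teff2 and 14.8, 12.7 and 9.94 CPM in Tn (log2 fold change -2.97, SE 0.44, adjusted p = 2.69e-04). Sesn1 had 37.4, 22.4 and 31.9 CPM in Teff2 and 129, 137 and 133 CPM in Tn (log2 fold change -2.12, SE 0.19, adjusted p = 1.04e-05). Mdm2, itself a p53 target and its inhibitor, was not called (log2 fold change 0.22), nor was Trp53inp1 (-0.4, with -1.06 without Teff2 replicate 1 and a range of -1.06 to 0.07 over the libraries left out). Without Teff2 replicate 1, 7 rises and 4 falls were called, and 3 rises and 4 falls were kept against Tn replicate 2 alone.

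In the BCL2 family, which sets the threshold for apoptosis, 6 of 11 tested genes rose (median log2 fold change 1.12). Bcl2l1, the survival protein BCL-XL, had 77.1, 168 and 121 CPM in Teff2 and 15.1, 10.7 and 12.7 CPM in Tn (log2 fold change 3.25, SE 0.29, adjusted p = 1.07e-05). Bcl2l2, the survival protein BCL-W, had 50.7, 30.8 and 43.2 CPM in Teff2 and 4.44, 3.95 and 5.64 CPM in Tn (log2 fold change 3.15, SE 0.28, adjusted p = 1.06e-05). Bcl2a1d, one of several near-identical A1 genes whose reads may be shared, had 20, 45.2 and 57.9 CPM in Teff2 and 5.77, 1.63 and 4.62 CPM in Tn (log2 fold change 3.35, SE 0.51, adjusted p = 2.91e-04). The rises covered both sides of the family, since the pro-apoptotic Bak1 rose by 1.12 and Bik had 2.19, 4.19 and 2.37 CPM in Teff2 and 0.729, 1.29 and 1.34 CPM in Tn (log2 fold change 1.37, SE 0.39, adjusted p = 0.0122), a call lost without Teff2 replicate 2 (adjusted p = 0.0535). Mcl1 and Bcl2l11 (BIM) were not called (log2 fold changes -0.59 and -0.06), and Mcl1 was called without Teff2 replicate 1 (log2 fold change -0.9, adjusted p = 0.0208). Against Tn replicate 2 alone, 5 rises were kept.

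**Figure D4:**
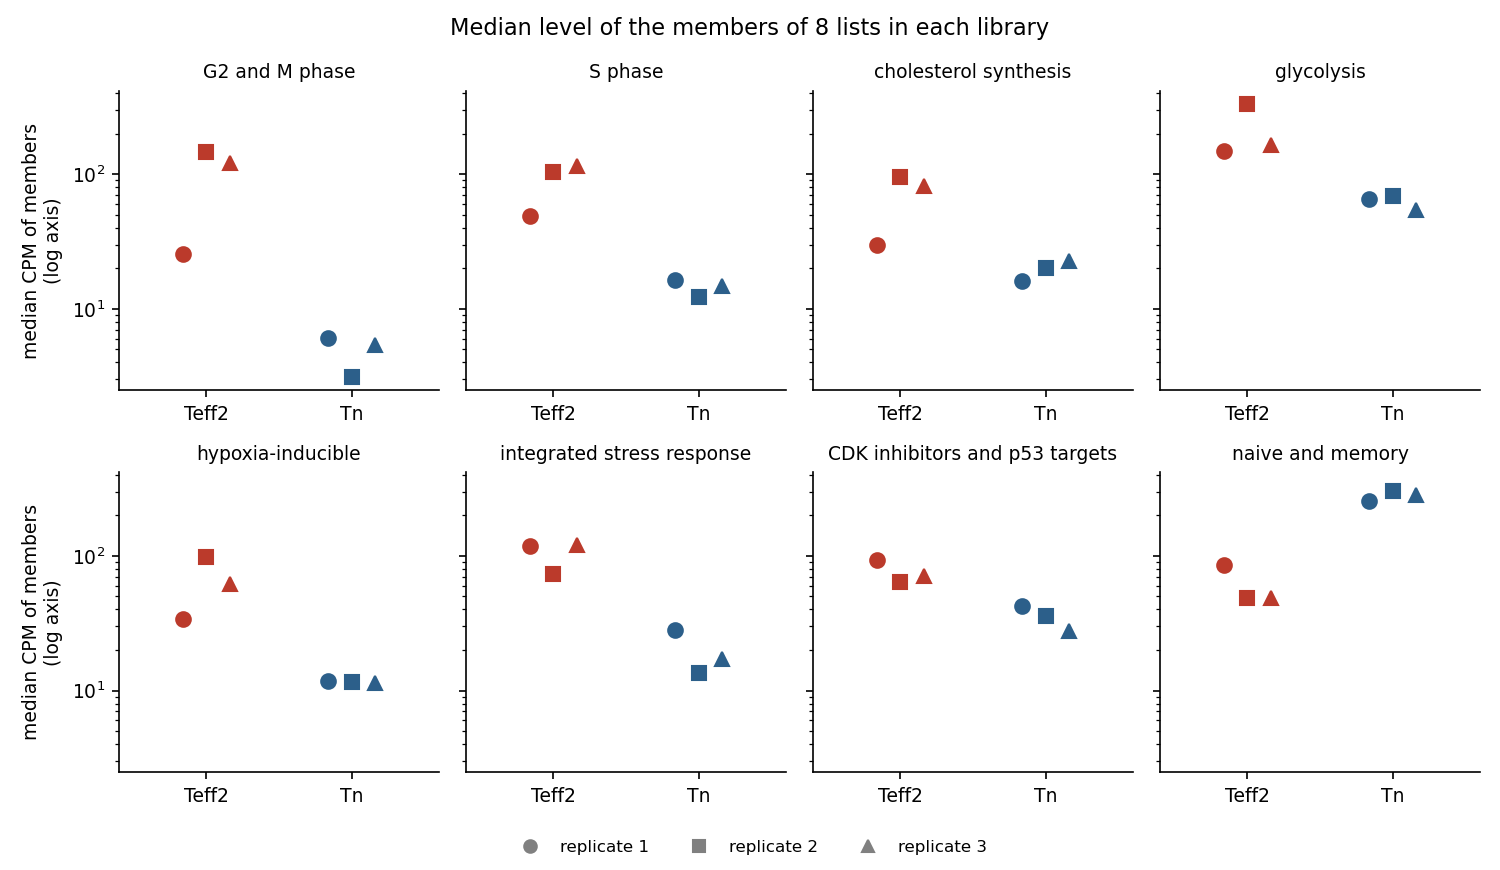
Median level of the members of selected gene lists (CPM, log scale) in each Teff2 and Tn library. The G2 and M phase list spans 25.5 to 147 CPM in Teff2, with replicate 1 lowest, and 3.13 to 6.1 CPM in Tn.

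Of 27 tested chromatin architecture genes 10 rose and 2 fell (median log2 fold change 0.2), against 25.6% and 23.3% of all genes, and the 3 largest rises were condensin subunits, which compact mitotic chromosomes. Ncapg had 28.4, 123 and 119.8 CPM in Teff2 and 4.44, 1.36 and 2.96 CPM in Tn (log2 fold change 4.95, SE 0.64, adjusted p = 1.10e-04). Ncapg2 had 55.3, 181 and 178 CPM in Teff2 and 8.82, 4.77 and 7.85 CPM in Tn (log2 fold change 4.27, SE 0.49, adjusted p = 4.78e-05). Ncaph had 33.5, 130.2 and 145 CPM in Teff2 and 6.83, 4.49 and 6.13 CPM in Tn (log2 fold change 4.14, SE 0.57, adjusted p = 1.55e-04). Hmgb2, a DNA-bending protein of dividing cells, had 201, 879.5 and 729.7 CPM in Teff2 and 102, 76.3 and 100.2 CPM in Tn (log2 fold change 2.7, SE 0.54, adjusted p = 0.00168). In all 4 genes Teff2 replicate 1 was the lowest of its group, as for the G2 and M phase list. Nipbl and Mau2, which load cohesin, had 217, 144 and 175 CPM and 140.1, 79.4 and 89.9 CPM in Teff2 and 332, 327 and 289.9 CPM and 203, 197 and 184 CPM in Tn. Their lower calls (log2 fold changes -0.82 and -0.91, adjusted p = 0.0206 and 0.0104) were both lost without Teff2 replicate 2 (adjusted p = 0.099 and 0.0564), and that of Nipbl also without Tn replicate 1 (0.0556) or 2 (0.05) and without Teff2 replicate 3 (0.0592). Smc4, a core subunit of condensin, had 314, 506 and 502 CPM in Teff2 and 563, 588 and 513 CPM in Tn, lower in every Teff2 library, and was not called (log2 fold change -0.33, SE 0.25, adjusted p = 0.297). Lbr was not called either (log2 fold change -0.49). With Tn replicate 2 standing for the naive group, 8 rises and no fall were kept.

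Of 29 tested chromatin-modifying enzymes 8 rose and 11 fell (median log2 fold change 0.08), against 25.6% and 23.3% of all genes. Ezh2, the methyltransferase of Polycomb complex PRC2, had 164, 248 and 239 CPM in Teff2 and 30.9, 24.1 and 26 CPM in Tn (log2 fold change 3.01, SE 0.23, adjusted p = 4.26e-06), whereas its paralog Ezh1 fell by 0.93. Tet1, which oxidises 5-methylcytosine, had 2.91, 4.71 and 3.87 CPM in Teff2 and 40.6, 46.6 and 38.4 CPM in Tn (log2 fold change -3.45, SE 0.33, adjusted p = 1.41e-05). The DNA methyltransferases Dnmt1 and Dnmt3a rose by 1.1 and 1.05. Crebbp, a histone acetyltransferase, had 65.4, 51.3 and 48.9 CPM in Teff2 and 209, 202 and 162 CPM in Tn (log2 fold change -1.79, SE 0.22, adjusted p = 8.64e-05), and its paralog Ep300 fell by 0.9. Suv39h2, a heterochromatin methyltransferase, had 9.75, 16.6 and 16.9 CPM in Teff2 and 5.5, 3.34 and 3.55 CPM in Tn (log2 fold change 1.8, SE 0.31, adjusted p = 6.38e-04). Kdm6b, a demethylase of the PRC2 mark, had 85.2, 123 and 53.1 CPM in Teff2 and 326, 147 and 144 CPM in Tn (log2 fold change -1.24, SE 0.42, adjusted p = 0.0288), a call lost without Tn replicate 1 (adjusted p = 0.163), Teff2 replicate 1 (0.0592) or Teff2 replicate 3 (0.108). Hdac7 was not called (log2 fold change -0.01).

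Among 19 tested histone chaperones and variants 14 rose (median 1.04). Chaf1a, a subunit of the CAF-1 chaperone that deposits histones behind the replication fork, had 60.5, 108 and 90.9 CPM in Teff2 and 8.62, 2.72 and 5.37 CPM in Tn (log2 fold change 3.96, SE 0.39, adjusted p = 1.84e-05). Hells, a remodeller of heterochromatin, had 76.9, 165 and 149 CPM in Teff2 and 13.3, 12 and 12 CPM in Tn (log2 fold change 3.39, SE 0.33, adjusted p = 1.49e-05). Asf1b, a chaperone of the same supply line, had 25, 70.8 and 61.1 CPM in Teff2 and 8.15, 7.29 and 7.31 CPM in Tn (log2 fold change 2.78, SE 0.38, adjusted p = 1.56e-04). Cenpa, the centromeric histone, had 36.1, 302 and 314 CPM in Teff2 and 54.2, 25.8 and 37.7 CPM in Tn, with Teff2 replicate 1 inside the Tn range, and its higher call (log2 fold change 2.47, SE 0.76, adjusted p = 0.0181) was lost without Teff2 replicate 3 (adjusted p = 0.0575), Tn replicate 2 (0.0643) or Tn replicate 3 (0.0567). H3f3b and Atrx were not called (log2 fold changes 0.07 and -0.19). The chaperone list had 9 rises without Tn replicate 2 and without Tn replicate 3. Against Tn replicate 2 alone, 6 of its rises and 2 rises and 4 falls of the enzymes were kept.

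Genes of glycolysis and of the hypoxia response rose together in Teff2. Of 22 tested glycolysis genes 17 rose and 1 fell, with a median log2 fold change of 1.97. Hk2, the hexokinase that traps glucose in the cell, had 109, 230.4 and 121 CPM in Teff2 and 8.75, 3.06 and 5.59 CPM in Tn (log2 fold change 4.72, SE 0.44, adjusted p = 1.23e-05). Slc16a3, the lactate exporter MCT4, had 69.7, 339.8 and 98.6 CPM in Teff2 and 4.38, 2.79 and 4.35 CPM in Tn (log2 fold change 5.46, SE 0.81, adjusted p = 2.55e-04, and 4.52 without Teff2 replicate 2). Tpi1, triosephosphate isomerase, had 293, 1143 and 482 CPM in Teff2 and 39.2, 42.4 and 41 CPM in Tn (log2 fold change 3.97, SE 0.69, adjusted p = 7.39e-04, and 3.31 without Teff2 replicate 2). Aldoc, an aldolase, had 7.35, 38.4 and 22 CPM in Teff2 and 0.729, 0.613 and 1.61 CPM in Tn (log2 fold change 4.48, SE 1.01, adjusted p = 0.00343). In all 4 genes Teff2 replicate 2 was the highest library. Ldha, which makes lactate, rose by 2.52, Pgk1 by 3.58 and the glucose transporters Slc2a1 and Slc2a3 by 1.53 and 1.97. The only fall was Pdk1, a kinase that inhibits pyruvate dehydrogenase. It had 74.6, 166 and 89.6 CPM in Teff2 and 307, 393 and 334 CPM in Tn (log2 fold change -1.65, SE 0.42, adjusted p = 0.00676). Hk1 and Gpi1 were not called (log2 fold changes 0.56 and 0.78), and Gpi1 was called without Teff2 replicate 1 (log2 fold change 0.95, adjusted p = 0.0304).

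Of 18 tested hypoxia-inducible genes 11 rose (median 1.62). Vegfa, an angiogenic factor, had 98, 87.5 and 67.1 CPM in Teff2 and 4.51, 0.817 and 1.72 CPM in Tn (log2 fold change 5.17, SE 0.53, adjusted p = 2.40e-05, and 6.02 without Tn replicate 1). Plod2, a collagen lysyl hydroxylase, had 34.8, 48.2 and 38.3 CPM in Teff2 and 1.19, 1.29 and 1.29 CPM in Tn (log2 fold change 5, SE 0.21, adjusted p = 1.93e-07). Egln3, a hydroxylase that marks HIF-1α for degradation, had 19.5, 350.4 and 80.3 CPM in Teff2 and 3.71, 6.74 and 4.68 CPM in Tn (log2 fold change 4.89, SE 1.2, adjusted p = 0.00546, and 3.38 without Teff2 replicate 2). Ak4, a mitochondrial adenylate kinase, had 8.11, 51.3 and 10.8 CPM in Teff2 and 0.398, 0.477 and 0.215 CPM in Tn (log2 fold change 6.01, SE 1.14, adjusted p = 0.0012, and 4.77 without Teff2 replicate 2). Ddit4 and Kdm3a were not called (log2 fold changes 0.01 and -0.26). In the fit with only Tn replicate 2 the glycolysis and hypoxia medians were 1.93 and 1.56, against 1.97 and 1.62 on all libraries. Fewer members of these lists were called higher in that fit. Pdk1 had a log2 fold change of -1.85 there.

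Respiratory chain genes rose more widely than strongly, with 20 of 28 tested members higher and none called lower, at a median log2 fold change of 0.81. Cycs, cytochrome c, had 157, 212 and 190 CPM in Teff2 and 50.5, 39.4 and 39.9 CPM in Tn (log2 fold change 2.11, SE 0.24, adjusted p = 4.47e-05). Uqcrq, a complex III subunit, had 156, 200 and 241 CPM in Teff2 and 56.5, 50.7 and 50 CPM in Tn (log2 fold change 1.92, SE 0.2, adjusted p = 2.09e-05). Atp5b, the catalytic subunit of ATP synthase, had 1092, 1823 and 1863 CPM in Teff2 and 556, 719 and 642 CPM in Tn (log2 fold change 1.32, SE 0.27, adjusted p = 0.00185). Cox5a, of complex IV, had 39.4, 83.1 and 60.3 CPM in Teff2 and 20.2, 27.1 and 24.5 CPM in Tn (log2 fold change 1.35, SE 0.3, adjusted p = 0.00314). Sdha and Uqcrc1 were not called (log2 fold changes 0.03 and 0.5).

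In the cholesterol synthesis list 13 of 24 tested genes rose (median 1.84), and Teff2 replicate 1 again stood low: the median member had 29.8, 94.9 and 81.7 CPM in Teff2 and 16, 20 and 22.8 CPM in Tn. Cyp51, a sterol demethylase, had 47.4, 348 and 262 CPM in Teff2 and 14.3, 17.1 and 20.5 CPM in Tn (log2 fold change 3.66, SE 0.82, adjusted p = 0.00322). Fdps, which makes farnesyl diphosphate, had 46.4, 288 and 248 CPM in Teff2 and 14.9, 20.5 and 22.6 CPM in Tn (log2 fold change 3.33, SE 0.87, adjusted p = 0.00767). Idi1, the isomerase before it, had 23.1, 96.5 and 76.3 CPM in Teff2 and 5.5, 6.06 and 6.72 CPM in Tn (log2 fold change 3.42, SE 0.68, adjusted p = 0.00169). Sqle, squalene epoxidase, had 58.5, 142 and 139 CPM in Teff2 and 12.5, 10.9 and 13.6 CPM in Tn (log2 fold change 3.19, SE 0.53, adjusted p = 5.20e-04). Srebf2, the transcription factor of the pathway, and Insig1, its feedback regulator, were not called (log2 fold changes 0.73 and 1.31). Without Teff2 replicate 1 all 20 respiratory and 13 cholesterol rises were kept. With only Tn replicate 2 as the naive library the medians of the 2 lists were 0.69 and 1.77, against 0.81 and 1.84 on all libraries. Fewer members of both lists were called higher in that fit.

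Amino acid supply and the stress response that controls it were raised almost throughout. Of 20 tested amino acid uptake and one-carbon genes 19 rose (median log2 fold change 2.11). Slc6a9, a glycine transporter, had 29.7, 19.5 and 31 CPM in Teff2 and 0.331, 0.272 and 0.484 CPM in Tn (log2 fold change 6.15, SE 0.62, adjusted p = 1.93e-05). Slc1a4, a transporter of alanine and serine, had 55.6, 50.9 and 72.1 CPM in Teff2 and 1.33, 0.409 and 2.2 CPM in Tn (log2 fold change 5.46, SE 0.55, adjusted p = 1.94e-05, and 6.09 without Tn replicate 3). Pycr1, which makes proline, had 20.1, 15.7 and 44 CPM in Teff2 and 1.13, 0.341 and 0.376 CPM in Tn (log2 fold change 5.44, SE 0.71, adjusted p = 1.11e-04, and 6.18 without Tn replicate 1). Slc7a11, the cystine importer, had 5.05, 4.84 and 6.83 CPM in Teff2 and 0.398, 0.136 and 0.322 CPM in Tn (log2 fold change 4.24, SE 0.72, adjusted p = 6.12e-04). Groups did not overlap for any of the 4. The serine synthesis genes Psat1 and Phgdh rose by 4.07 and 2.76, the mitochondrial folate enzyme Mthfd2 by 3.5 and the leucine transporter Slc7a5 by 3.37. Slc38a2 was the member not called, at 248, 259 and 298 CPM in Teff2 and 428, 297 and 235 CPM in Tn. Against Tn replicate 2 alone, 16 of the 19 rises were kept.

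Of 22 tested integrated stress response genes 18 rose and 1 fell (median log2 fold change 1.98). In this response, amino acid shortage or other stress slows translation and raises the transcription factor ATF4, which acts with partners at C/EBP-ATF response elements. Cth, which makes cysteine from cystathionine (chromosome 3, 157894248 to 157925081), had 90.2, 55 and 122 CPM in Teff2 and no count in Tn, which makes it at least 475-fold higher. Asns, asparagine synthetase, had 153, 199 and 314 CPM in Teff2 and 1.66, 0.272 and 0.914 CPM in Tn (log2 fold change 7.86, SE 0.62, adjusted p = 5.22e-06, and 8.48 without Tn replicate 1). Chac1, which degrades glutathione, had 18, 18.1 and 33.9 CPM in Teff2 and 0.0663, 0.0681 and 0.161 CPM in Tn (log2 fold change 7.73, SE 0.65, adjusted p = 6.77e-06). Vldlr, a lipoprotein receptor, had 10.2, 12 and 16.1 CPM in Teff2 and 3 counts in all of Tn, a ratio of 206 (95% counting interval 70.3 to 1002). For these genes the lowest Teff2 library was far above the highest Tn library. Trib3 and Nupr1 rose by 5.31 and 4.37, Atf5 by 3.12, Ddit3 by 1.95 and Atf4 by 1.16, and the aminoacyl-tRNA synthetase genes Gars, Aars and Nars by 2.16, 1.99 and 1.96. The fall was Ppp1r15a, the phosphatase subunit GADD34 that ends the response, with 38.2, 45.3 and 57.3 CPM in Teff2 and 451, 215 and 121 CPM in Tn (log2 fold change -2.48, SE 0.45, adjusted p = 9.40e-04, and -1.84 without Tn replicate 1). Ddit4 and Cebpb were not called (log2 fold changes 0.01 and 0.01). With Tn replicate 2 standing for the naive group, 13 rises and the fall were kept.

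The promoters of the 3 largest rises of this list that hold the core of the amino acid response element are shown because this element is known as the site through which ATF4 acts on such genes. Windows are as above, and capitals mark TGATGNAA or its reverse complement. Asns lies on the minus strand at chr6:7693160-7693459, Chac1 on the plus strand at chr2:119350992-119351291 and Vldlr on the plus strand at chr19:27216770-27217069, the last being the second of its RefSeq windows.
Asns: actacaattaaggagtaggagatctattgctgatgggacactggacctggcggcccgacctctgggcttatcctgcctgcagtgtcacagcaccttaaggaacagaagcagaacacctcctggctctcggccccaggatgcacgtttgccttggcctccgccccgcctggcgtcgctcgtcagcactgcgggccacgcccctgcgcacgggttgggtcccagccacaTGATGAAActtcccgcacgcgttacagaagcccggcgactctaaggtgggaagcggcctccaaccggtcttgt
Chac1: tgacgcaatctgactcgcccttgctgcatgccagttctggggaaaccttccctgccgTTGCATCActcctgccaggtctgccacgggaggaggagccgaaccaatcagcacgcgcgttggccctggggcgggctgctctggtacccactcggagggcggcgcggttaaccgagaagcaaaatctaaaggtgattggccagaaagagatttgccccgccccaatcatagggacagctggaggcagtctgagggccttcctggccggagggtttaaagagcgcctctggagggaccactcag
Vldlr: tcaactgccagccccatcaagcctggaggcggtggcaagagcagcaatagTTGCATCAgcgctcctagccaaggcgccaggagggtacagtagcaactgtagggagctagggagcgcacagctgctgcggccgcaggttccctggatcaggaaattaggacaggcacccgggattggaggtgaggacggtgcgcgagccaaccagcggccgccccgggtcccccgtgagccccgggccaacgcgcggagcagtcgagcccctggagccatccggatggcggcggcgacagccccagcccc
The letters lie 23 bases before the start in the Asns window, 193 bases before it in the Chac1 window and 200 bases before it in the Vldlr window, the last pair as the reverse complement. Searched on both strands, TGATGNAA was in the windows of 7 of 18 list genes that had one (38.9%). By window it was in 7 of 20, against 4.0% of all 32851 windows. The 7 genes were Aars, Asns, Chac1, Gars, Nupr1, Trib3 and Vldlr, and all 7 were called higher in Teff2, as were 18 of the 22 tested genes of the list. Cth, the largest rise of the list, is not among them.

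Genes of protein folding and ribosome production rose in smaller steps. Of 22 tested endoplasmic reticulum chaperone and unfolded protein response genes 14 rose and 3 fell (median log2 fold change 0.94). Sdf2l1, an ER chaperone cofactor, had 58.6, 78.1 and 40.2 CPM in Teff2 and 13.8, 12.1 and 14.6 CPM in Tn (log2 fold change 2.13, SE 0.41, adjusted p = 0.00141). Xbp1, a transcription factor of the response, had 136, 230.4 and 144 CPM in Teff2 and 57.9, 31.5 and 45 CPM in Tn (log2 fold change 1.92, SE 0.39, adjusted p = 0.00174). Atf6, its membrane-bound counterpart, had 50, 55.3 and 62.8 CPM in Teff2 and 20.6, 6.27 and 20.7 CPM in Tn (log2 fold change 1.82, SE 0.38, adjusted p = 0.00204). Pdia6, a disulfide isomerase, had 245, 270.4 and 201 CPM in Teff2 and 90.8, 88.2 and 97.4 CPM in Tn (log2 fold change 1.37, SE 0.33, adjusted p = 0.00483). Dnajb9, a co-chaperone, had 15.1, 8.32 and 9.68 CPM in Teff2 and 159, 68.6 and 27.6 CPM in Tn (log2 fold change -2.95, SE 0.56, adjusted p = 0.00126, and -2.12 without Tn replicate 1). Syvn1, the ubiquitin ligase HRD1, was lower (log2 fold change -0.8, SE 0.27, adjusted p = 0.0258), with 53.3, 43.4 and 33.5 CPM in Teff2 and 83.5, 54.8 and 88.6 CPM in Tn, a call lost without Teff2 replicate 2 (adjusted p = 0.0799) or 3 (0.104) and without Tn replicate 1 (0.0778) or 3 (0.096). Calr and Edem1 were not called (log2 fold changes 0.95 and 0.07), and Calr was called without Teff2 replicate 3 (log2 fold change 1.24, adjusted p = 0.0285).

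Of 28 tested ribosome biogenesis genes 23 rose (median 0.92). Npm1, nucleophosmin, had 1681, 1757 and 1775 CPM in Teff2 and 669, 646 and 500.1 CPM in Tn (log2 fold change 1.52, SE 0.18, adjusted p = 5.05e-05). Nhp2, of the box H/ACA particles, had 167, 228 and 175 CPM in Teff2 and 62.8, 60.5 and 56.1 CPM in Tn (log2 fold change 1.67, SE 0.27, adjusted p = 4.65e-04). Nop16 had 69.4, 99.3 and 70 CPM in Teff2 and 24.1, 29.2 and 25.4 CPM in Tn (log2 fold change 1.6, SE 0.33, adjusted p = 0.00213). Bop1 and Utp20 were not called (log2 fold changes 0.55 and 0.2). In the fit with only Tn replicate 2 the medians of the chaperone and biogenesis lists were 0.9 and 0.8, against 0.94 and 0.92 on all libraries. Both lists had fewer members called higher in that fit.

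The ribosome's own protein genes changed little relative to the other RNA of the libraries. Of 30 tested cytosolic ribosomal protein genes 6 rose, a share near the background of 25.6% (median log2 fold change 0.13). The median member had 2049.7, 1619 and 1728 CPM in Teff2 and 1787, 1824 and 1605 CPM in Tn, so the groups overlapped. Rps2 had 3107, 2707 and 2893 CPM in Teff2 and 1962, 1853 and 1730.1 CPM in Tn (log2 fold change 0.65, SE 0.16, adjusted p = 0.00565). Rpl15 had 1372, 971 and 1108 CPM in Teff2 and 724, 858 and 731 CPM in Tn (log2 fold change 0.58, SE 0.17, adjusted p = 0.0128); these genes have many processed copies, which makes their counts uncertain. The calls of Rpl7a and Rpl14 were lost without Tn replicate 2 (adjusted p = 0.0763 and 0.107), without Tn replicate 3 (0.12 and 0.153), and without Teff2 replicate 2 (Rpl7a, 0.105) or 1 (Rpl14, 0.116). Rplp0 and Rpl4 were not called (log2 fold changes 0.19 and 0.36), and Rpl4 was called without Teff2 replicate 2 (log2 fold change 0.49, adjusted p = 0.0481) and without Tn replicate 2 (log2 fold change 0.48, adjusted p = 0.0474). Without Tn replicate 3 there were 2 rises, without Teff2 replicate 1 there were 3 falls, with upper-quartile scaling there were 2 rises, and no rise was kept against Tn replicate 2 alone.

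Interferon-related genes did not share one direction. Of 31 tested interferon-stimulated genes 5 rose and 8 fell (median log2 fold change 0.35), against 25.6% and 23.3% of all genes. The falls included antiviral effectors of the type I response. Ifit3 had 0.765, 1.29 and 0.806 CPM in Teff2 and 16.8, 22.9 and 23.1 CPM in Tn (log2 fold change -4.46, SE 0.41, adjusted p = 1.12e-05). Ifit1 had 3.32, 3.48 and 2.69 CPM in Teff2 and 15.5, 23.2 and 20 CPM in Tn (log2 fold change -2.63, SE 0.38, adjusted p = 2.04e-04). Oas2, an oligoadenylate synthetase, had 1.02, 2.39 and 2.2 CPM in Teff2 and 39.2, 23.8 and 36.4 CPM in Tn (log2 fold change -4.15, SE 0.58, adjusted p = 1.70e-04). Oasl1 had 0.816, 1.94 and 1.51 CPM in Teff2 and 13.7, 14.3 and 12.6 CPM in Tn (log2 fold change -3.25, SE 0.81, adjusted p = 0.00583). The rises were Iigp1, an IFN-γ-induced GTPase, with 174, 80.2 and 66 CPM in Teff2 and 10.2, 17.5 and 14.6 CPM in Tn (log2 fold change 2.92, SE 0.52, adjusted p = 8.03e-04), Gbp2, with 600.4, 182 and 165 CPM in Teff2 and 61.5, 91.2 and 70.8 CPM in Tn (log2 fold change 2.08, SE 0.56, adjusted p = 0.00888, and 1.23 without Teff2 replicate 1), Igtp (1.62), Bst2 (1.4) and Gbp3 (0.97). Gbp2 and Iigp1 were highest in Teff2 replicate 1, the library with the lowest Ifng level of its group. Oas3 and Gbp4 were not called (log2 fold changes 1.21 and -0.58). Oas3 was called without Teff2 replicate 1 (log2 fold change 1.63, adjusted p = 0.0489), and Gbp4 was called without Teff2 replicate 1 (log2 fold change -1.56, adjusted p = 0.00796). Without Teff2 replicate 1 the list had 8 rises, and against Tn replicate 2 alone no rise and 6 falls were kept.

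Of 16 tested class I presentation genes 3 rose and 1 fell (median log2 fold change 0.13). Psme2, a proteasome activator subunit, had 269, 213 and 273 CPM in Teff2 and 114, 165 and 166 CPM in Tn (log2 fold change 0.77, SE 0.2, adjusted p = 0.00806). Psmb9, an immunoproteasome subunit, had 289.8, 262 and 249.9 CPM in Teff2 and 142, 174 and 193 CPM in Tn (log2 fold change 0.66, SE 0.16, adjusted p = 0.00568). H2-T23 (log2 fold change 0.56, SE 0.18, adjusted p = 0.0214) lost its call without Tn replicate 1 (adjusted p = 0.0909) or 2 (0.0542) and without Teff2 replicate 3 (0.0514). Psmb10, lower on all libraries (log2 fold change -0.45, SE 0.15, adjusted p = 0.0262), lost its call without Tn replicate 2 (adjusted p = 0.11) or 3 (0.0516) and without Teff2 replicate 2 (0.117) or 3 (0.111). The class I heavy chains H2-K1 and H2-D1 were not called (log2 fold changes -0.59 and -0.54). Without Teff2 replicate 1 both were called lower (log2 fold changes -0.94 and -0.81, adjusted p = 0.00443 and 0.00316), and the list then had 3 rises and 4 falls. Without Teff2 replicates 2 and 3 and Tn replicates 2 and 3 in turn it had no fall, and with upper-quartile scaling 2 rises and 2 falls. None of the 4 class I calls was kept against Tn replicate 2 alone.

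Redox and iron genes moved both ways, as tested genes did in general: 7 of 22 tested rose and 9 fell (median log2 fold change 0.5). Over all tested genes 25.6% rose and 23.3% fell. Txn1, thioredoxin, had 293, 482 and 397 CPM in Teff2 and 62.7, 46 and 47.2 CPM in Tn (log2 fold change 2.91, SE 0.35, adjusted p = 6.17e-05). Prdx2, a peroxiredoxin, had 117, 135 and 159 CPM in Teff2 and 39.6, 41.1 and 36.8 CPM in Tn (log2 fold change 1.81, SE 0.18, adjusted p = 1.82e-05). Hmox1, which breaks down heme, had 6.02, 8.84 and 13.2 CPM in Teff2 and 129, 44.9 and 33.7 CPM in Tn (log2 fold change -2.88, SE 0.51, adjusted p = 7.63e-04, and -2.07 without Tn replicate 1). Slc40a1, the iron exporter ferroportin of macrophages, had 0, 0 and 0 CPM in Teff2 and 36.1, 17.4 and 20.6 CPM in Tn, at least 146-fold lower; macrophage markers were lower in the same libraries, and their part was not tested. The ferritin chains Fth1 and Ftl1 fell by 1.03 and 0.73. Slc11a2, an iron importer, had 33.7, 43.3 and 42.6 CPM in Teff2 and 91.5, 90.6 and 79.5 CPM in Tn (log2 fold change -1.13, SE 0.16, adjusted p = 2.27e-04). Steap3, an iron reductase, had 0.306, 0.581 and 0.43 CPM in Teff2 and 3.38, 1.91 and 3.82 CPM in Tn (log2 fold change -2.78, SE 0.65, adjusted p = 0.00416). Gpx1 and Prdx1 were not called (log2 fold changes 0.17 and 0.83), and Prdx1 was called without Teff2 replicate 1 (log2 fold change 1.12, adjusted p = 0.0247). Without Tn replicate 3 there were 4 rises, and against Tn replicate 2 alone 3 rises and 6 falls were kept.

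Of the 8 tested GIMAP GTPases, which support lymphocyte survival, 4 fell and 1 rose (median -0.44). Gimap8 had 205, 135 and 146 CPM in Teff2 and 390.2, 472 and 495 CPM in Tn (log2 fold change -1.48, SE 0.22, adjusted p = 2.44e-04). Gimap6 had 371, 265 and 314 CPM in Teff2 and 1085, 681 and 610.4 CPM in Tn (log2 fold change -1.32, SE 0.22, adjusted p = 5.23e-04). Gimap3 had 330.1, 191 and 212 CPM in Teff2 and 447, 560.1 and 573 CPM in Tn (log2 fold change -1.11, SE 0.25, adjusted p = 0.00364). Gimap7, the rise, had 71.8, 90.9 and 105 CPM in Teff2 and 24.4, 52.6 and 41.6 CPM in Tn (log2 fold change 1.17, SE 0.33, adjusted p = 0.0113). Gimap9 (log2 fold change -0.48, SE 0.16, adjusted p = 0.0301) kept its lower call only without Teff2 replicate 1 when single libraries were left out; its adjusted p was 0.125 and 0.131 without Teff2 replicates 3 and 2 and 0.0668, 0.086 and 0.0561 without Tn replicates 1, 2 and 3. Against Tn replicate 2 alone, no rise and 3 falls were kept.

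The 10 largest rises without overlap, at 10 CPM or more in Teff2 on average, were Cth, Slc17a6, Upp1, Spp1, Rgs8, Lif, Tnfsf4, Gzmb, Il23a and Lipg. Upp1, uridine phosphorylase, had 48, 26.2 and 21.8 CPM in Teff2 and no count in Tn, at least 170.3-fold higher. Slc17a6, a vesicular glutamate transporter best known from neurons, had 19.1, 81.4 and 74.8 CPM in Teff2 and no count in Tn, at least 311-fold higher. Tnfsf4, the ligand of OX40, had 65.6, 3.81 and 17.3 CPM in Teff2 and 2 counts in all of Tn, a ratio of 751 (95% counting interval 207 to 6203). Its log2 fold change of 9.22 was 7.78 without Teff2 replicate 1 and 8.61 without Tn replicate 3. Its receptor Tnfrsf4 rose in the same libraries, as given above. Rgs8, a regulator of G protein signalling, had 37.8, 19.9 and 29.9 CPM in Teff2 and 1 count in Tn, a ratio of 1449 (259.7 to 57263), and without Tn replicate 3, the library with that count, none was left. Lipg, endothelial lipase, had 0.969, 31 and 14.1 CPM in Teff2 and 2 counts in Tn, a ratio of 344 (94.8 to 2842), and its log2 fold change of 8.31 was 7.37 without Teff2 replicate 2. Il23a, the p19 chain of IL-23, had 67.2, 7.68 and 19.6 CPM in Teff2 and 0.133, 0 and 0.107 CPM in Tn (log2 fold change 8.46, SE 1.9, adjusted p = 0.00331, and 7.27 without Teff2 replicate 1). Of the 10 rises 7 were kept against Tn replicate 2 alone, and the calls of Tnfsf4, Il23a and Lipg were lost (adjusted p = 0.0885, 0.0919 and 0.0893).

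The 10 largest falls without overlap were all in genes known from other cells of the spleen. Pax5 and Fcrla, B cell genes, had no count in Teff2 and 39, 2.11 and 50 and 19.8, 1.57 and 33.6 CPM in Tn, which makes them at least 179.7-fold and 108-fold lower in Teff2. Vcam1, C1qa, C1qc and Marco, genes of macrophages, and Slc40a1 had no count in Teff2 either and were at least 152-fold, 89.5-fold, 88.4-fold, 86.3-fold and 146-fold lower. Sirpa, a receptor of myeloid cells, and Ncr1, an NK cell receptor, were at least 90.2-fold and 85.7-fold lower, with no count in Teff2. Lyz2, a lysozyme of myeloid cells, had 1 count in Teff2 and 2789 in Tn, a ratio of 3093 (95% counting interval 555 to 122225). Marco had 0, 0 and 0 CPM in Teff2 and 39.6, 2.59 and 1.67 CPM in Tn, so Tn replicate 1 carried its fall (log2 fold change -11.04, and -8.28 without that library). Ncr1 had 0, 0 and 0 CPM in Teff2 and 12.3, 0.341 and 30.8 CPM in Tn (log2 fold change -11.04, with -9.83 without Tn replicate 3 and -11.64 without Tn replicate 2). Fcrla, at -11.37, had -10.58 without Tn replicate 3, and Lyz2, at -11.14, had -10.35 without Tn replicate 1 and no count in Teff2 without Teff2 replicate 3. Fitted against no counts, such values are no bounds. Pax5, Vcam1, C1qa, C1qc, Marco, Lyz2 and Ncr1 are members of the marker sums given above, so their falls and the lower sums are the same measurement. Whether these falls reflect anything within CD8+ T cells was not tested. In the fit with Tn replicate 2 only 9 of the 10 falls were kept, and Ncr1 was not (log2 fold change -5.68, adjusted p = 0.202).

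Across annotated classes the balance of rises and falls differed. Of 12105 tested protein-coding genes 3406 rose (28.1%) and 2916 fell (24.1%), while of 405 long noncoding RNAs 46 rose (11.4%) and 91 fell (22.5%). Of 77 tested mitochondrial ribosomal protein genes 60 rose and 1 fell, in contrast to the 6 of 30 cytosolic ones; Mrps6 rose most, with 55.1, 51.5 and 37.4 CPM in Teff2 and 6.63, 6.27 and 6.07 CPM in Tn. Of 37 proteasome subunit genes 31 rose and 1 fell (median log2 fold change 1.06), led by Psmb7 with 142, 222 and 220.2 CPM in Teff2 and 61.4, 52 and 53.2 CPM in Tn. Of 27 kinesin genes, which encode microtubule motors, 15 rose and 3 fell. Kif2c, a mitotic member, rose by 5.14, and Kif21b, a motor of neurons and lymphocytes, had 264, 171 and 259 CPM in Teff2 and 1169.8, 1084 and 1132 CPM in Tn. Zinc finger genes named Zfp leaned the other way, with 33 of 318 higher (10.4%) and 102 lower (32.1%). Among them Zfp36l2, an RNA-binding protein that promotes mRNA decay and quiescence, had 245, 238 and 182 CPM in Teff2 and 1872, 1719 and 1438 CPM in Tn. The 20 tested immunoglobulin variable segments all fell, as the B cell markers did, while of 66 T cell receptor alpha and beta variable segments 8 fell and none rose. Of 18 dual-specificity phosphatase genes, which switch off MAP kinases, 6 rose and 7 fell, with Dusp4 at 5 and Dusp1 at -4.15 on the log2 scale. Of 13 G protein signalling regulators 5 rose and 4 fell, with Rgs16 at 708, 718 and 429.6 CPM in Teff2 and 6.1, 1.29 and 3.22 CPM in Tn. The genes given for these families were chosen after their values were seen. Set against Tn replicate 2 alone, 12 rises of the mitochondrial ribosomal proteins, 9 of the proteasome subunits and 12 rises and 2 falls of the kinesins were kept, and no fall of the first 2 families. Of the Zfp genes 15 rises and 40 falls were kept, of the dual-specificity phosphatases 6 and 5 and of the G protein signalling regulators 3 and 2. Of the immunoglobulin segments 10 falls were kept, and of the T cell receptor segments 7. Falls among the Zfp genes numbered 56 without Teff2 replicate 2, and falls among the T cell receptor segments 5 without Teff2 replicate 2 and 4 without Tn replicate 2, with 1 rise without Teff2 replicate 2. The single fall of the mitochondrial ribosomal proteins and that of the proteasome subunits were not called without Teff2 replicate 2 or 3 or Tn replicate 2 or 3. Rises of the G protein signalling regulators numbered 3 without Tn replicate 3.

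**Figure D5:**
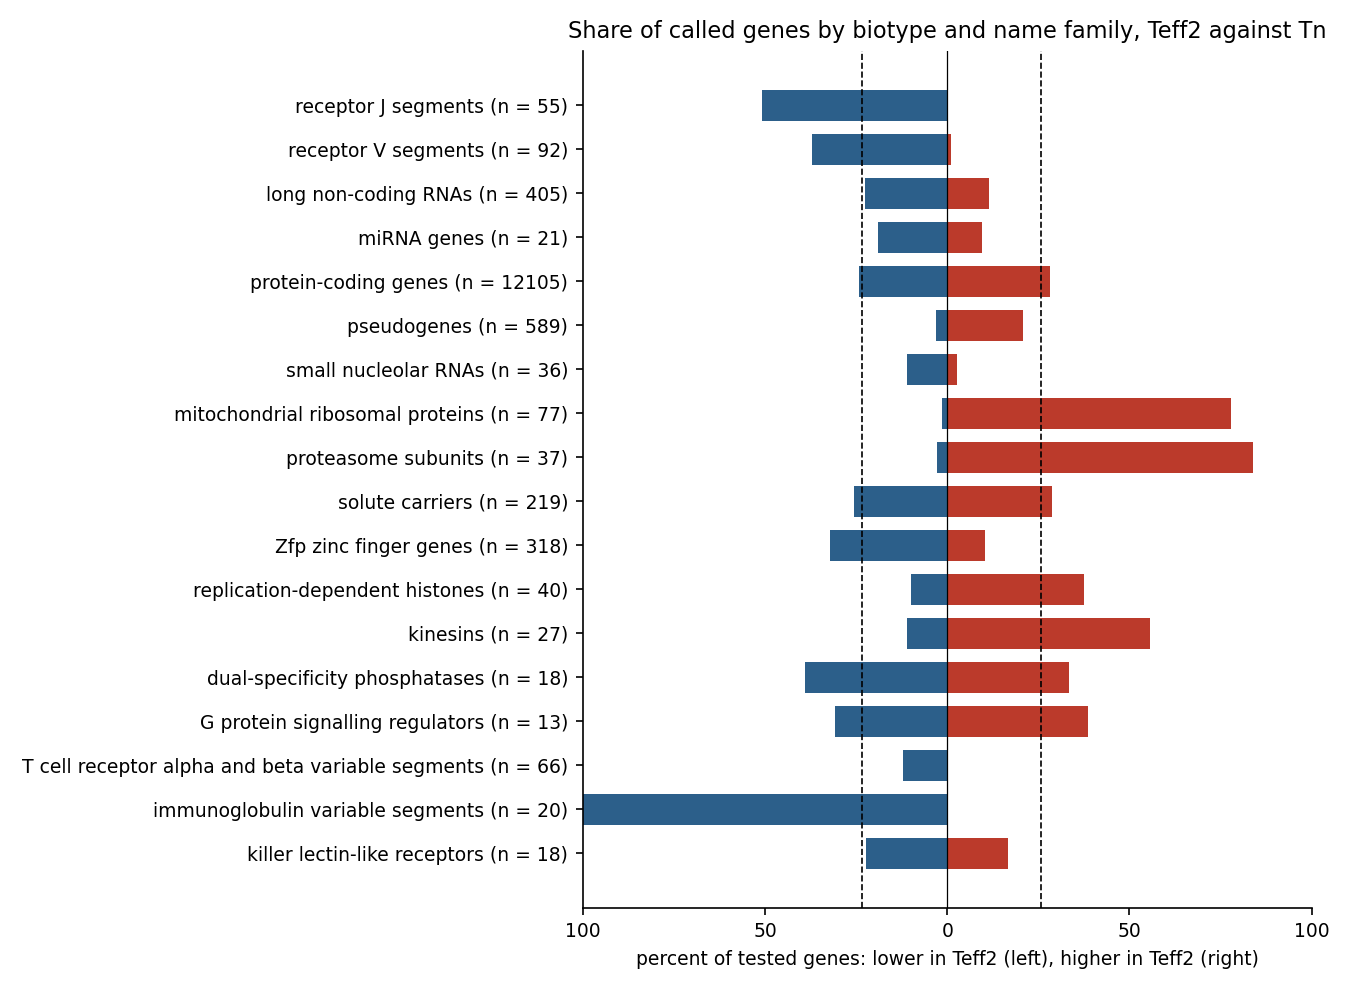
Percent of tested genes called higher and lower in Teff2 than in Tn in each annotated class and gene family, with dashed lines at 25.6% and 23.3%, the shares over all tested genes. Proteasome subunits and mitochondrial ribosomal proteins lie at 83.8% and 77.9% higher; unmatched symbols, transcribed pseudogenes and families under 10 tested genes are left out, and the segment classes overlap with the segment families.

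Day 5 effectors were then set against day 2 effectors, a comparison that shares the Teff2 libraries with the one above and sets no naive library against them, although all 12 libraries set the spread of the fit. On the 6 libraries of these 2 groups alone 36 genes were higher and 3 lower. The 80 higher and 16 lower genes became 17 to 88 and 2 to 18 when single libraries were left out. The count of rises was 22 without Teff2 replicate 3 and 36, 24 and 17 without Teff1 replicates 1, 2 and 3. That of falls was 8 and 3 without Teff2 replicates 2 and 3 and 5, 2 and 6 without Teff1 replicates 1, 2 and 3. Upp1 had a mean of 32 ± 14 CPM in Teff2 and 0.128 ± 0.102 CPM in Teff1 (SD, n = 3 each; log2 fold change 7.97, SE 0.65, adjusted p = 6.29e-04). Rgs8 had 29.2 ± 8.96 CPM in Teff2 and 2.08 ± 0.275 CPM in Teff1 (log2 fold change 3.81, SE 0.42, adjusted p = 0.00138). Slc17a6 had 58.4 ± 34.2 CPM in Teff2 and 5.85 ± 0.493 CPM in Teff1 (log2 fold change 3.32, SE 0.5, adjusted p = 0.0233). Of the largest rises over Tn, then, these 3 were also higher than at day 2. Plod2 had 40.4 ± 6.94 CPM in Teff2 and 14.3 ± 1.95 CPM in Teff1 (log2 fold change 1.5, SE 0.18, adjusted p = 0.00295). Bcl2l2 had 41.6 ± 10 CPM in Teff2 and 16.1 ± 1.53 CPM in Teff1 (log2 fold change 1.36, SE 0.26, adjusted p = 0.039). Itgav had 153 ± 21 CPM in Teff2 and 66.8 ± 16.5 CPM in Teff1 (log2 fold change 1.2, SE 0.22, adjusted p = 0.0324). Klrd1, the CD94 chain that pairs with NKG2A, had 201 ± 27.9 CPM in Teff2 and 53.8 ± 30.3 CPM in Teff1 (log2 fold change 1.9, SE 0.34, adjusted p = 0.0297) but was not called against Tn (log2 fold change 0.31, with a Tn mean of 162 CPM).

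Il6ra was lower at day 5 than at day 2, at 5.66 ± 1.28 CPM in Teff2 and 20.4 ± 2.44 CPM in Teff1 (log2 fold change -1.85, SE 0.19, adjusted p = 8.75e-04), as was Nsg2, at 13.8 ± 1.23 CPM in Teff2 and 34.2 ± 1.17 CPM in Teff1 (log2 fold change -1.31, SE 0.21, adjusted p = 0.0218). Ifit3 was lower too, at 0.954 ± 0.292 CPM in Teff2 and 4.45 ± 1.26 CPM in Teff1 (log2 fold change -2.22, SE 0.38, adjusted p = 0.0254). Klrd1, Itgav, Bcl2l2, Plod2, Il6ra, Nsg2 and Ifit3 were the only tested list members that the fit called between the days in these libraries. Of genes outside the lists, chosen after their values were seen, Myo10, an unconventional myosin, had 119.9 ± 12.3 CPM in Teff2 and 9.41 ± 1.13 CPM in Teff1 (log2 fold change 3.67, SE 0.25, adjusted p = 7.14e-05). Axl, a receptor tyrosine kinase, had 95.2 ± 12.4 CPM in Teff2 and 17.9 ± 2 CPM in Teff1 (log2 fold change 2.41, SE 0.18, adjusted p = 8.35e-05). Trib2, a pseudokinase, had 11.4 ± 1.72 CPM in Teff2 and 53.6 ± 17.2 CPM in Teff1 (log2 fold change -2.24, SE 0.28, adjusted p = 0.00422).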

How the data were processed

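RNA-seq of 12 sorted mouse CD8+ T cell libraries, 3 in each of 4 groups, was read from the deposited matrix of raw counts per gene (34573 symbols, of which 11535 had no count in any library), which the authors made before deposit. A second deposited matrix holds the authors' normalized values on a log2 scale, with a transformation not given in the sources used here, and was used for 1 alternative. Per the submitters' processing notes, the assembly was mm10 and the software included HISAT2, HTSeq and DESeq2, plus BWA and Juicer, with no versions or roles. Counting is not stated to use strand, so overlapping and antisense genes cannot be told apart. Columns were mapped to libraries by group and replicate number.

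Counts were tested with edgeR 4.0.16 (R 4.3.3): TMM factors, the filter by expression (14332 genes kept), a quasi-likelihood F test whose fit held all 12 libraries and a group term, and Benjamini-Hochberg adjustment over all genes, with calls at an adjusted p under 0.05. SE is the log2 fold change divided by the square root of F. CPM used TMM-scaled library sizes, and marker sums plain totals. Where a group had no count, a fold is a bound against 3 counts per library; ratios on 1 to 3 counts have 95% intervals; both cover counting error only. The fit was tested on simulated data. Same-numbered Teff2 and Tn libraries did not deviate together (r of 0.0054, 0.08 and 0.079), so they were not paired.

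The 29 gene lists and the genes named were chosen with earlier results of these data known, so lists are described by counts and medians beside all genes. The naming rule took the 10 largest rises and falls without overlap at 10 CPM or more, without pseudogenes, predicted genes or receptor segments. From each list it added at most 4 called members in its main direction and 2 in the other at 2 CPM or more, up to 2 members not called, the sorted proteins' genes, the leading marker of each cell type and genes whose promoter is shown. Other members are given with their log2 fold change only. A few genes under this rule are not reported here. Alternatives were other scalings, no filter on low counts, DESeq2 1.42.0, a fit on 6 libraries, a replicate block, limma 3.58.1 on the authors' values, leaving out each library, and Tn replicate 2 alone. Symbols were matched to RefSeq on GRCm38.p6 (25335 by current and 2404 by 1 older symbol, 80.2%), the source of coordinates and promoters. Kmt2d had no row.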

Additional observations from a re-analysis of the deposited data

How the results depend on the processing

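Against Tn, calls were 3270 higher and 3757 lower with upper-quartile scaling, 3597 and 3423 with median-of-ratios size factors, 3721 and 3548 with no filter on low counts, 3817 and 3747 with DESeq2, 3380 and 3227 on the 6 libraries and 3418 and 4584 with limma on the authors' values, and 1701 and 1633 with Tn replicate 2 alone. Leaving out 1 library gave 3039 to 3820 higher and 2643 to 3796 lower. Against Teff1, calls were 371 higher and 126 lower with DESeq2, 36 and 3 on the 6 libraries, and 17 to 88 and 2 to 18 on leaving out 1 library. A replicate block on all 12 libraries gave 4005 higher and 3979 lower against Tn. Against Teff1 it gave 261 and 52, where the fit without it gave 80 and 16. Same-numbered Teff2 and Teff1 libraries had r of 0.51, 0.24 and 0.029, and unequal ones ranged from -0.57 to 0.51. Whether same-numbered libraries of these 2 groups are paired cannot be told from these values. Of the 166 named genes with a call, 119 kept direction and call with Tn replicate 2 alone, 44 lost the call and 3 turned: Cd40lg (log2 fold change 0.38), Ccl5 (0.48) and Havcr2 (0.09). Cd69 ranged from -0.48 to 0.75 on leaving out 1 library, turning without Tn replicate 1. Of the 55 without a call, 7 turned there and none gained one. Named genes that lost and gained a call numbered 5 and 2 with limma, 1 and 6 with DESeq2 and 3 and 3 with upper-quartile scaling. The chromatin-modifying list's median was -0.03 with upper-quartile scaling. The cause of these moves was not tested. At this depth a count of 0 in a Tn library allowed up to 0.161 to 0.204 CPM.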
